A study of Mus musculus with 15 samples.

Results

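Mouse mammary epithelial organoids kept for 72 h beside beads soaked in bovine serum albumin (BSA), without the growth factor FGF10, were compared with organoids taken at 0 h, across all expressed genes. Organoids are small clumps of gland epithelium, and a BSA bead is the control for a bead that carries FGF10. The groups used were FGF10 72 h, BSA 72 h, BSA 36 h and 0 h, with 3 libraries each. Every group was wild type (WT), labelled as mammary epithelial cells of the mammary gland, and was cultured in DMEM/F12 with L-Ala-Gln, insulin, transferrin and selenium (ITS) and antibiotics. The strain, sex and age of the mice, and how many mice or cultures a library holds, are not given in the sources used here. The comparison rests on 6 of 15 libraries, BSA 72 h 2_1, 2_2 and 3 and 0 h libraries 1, 2 and 4, here called 0h-1, 0h-2 and 0h-4. All 15 libraries, those of FGF10 36 h among them, shared the filter, the scaling and the estimate of spread. Of 54456 genes in the count table, 18140 passed a filter on low counts and were tested.

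The mammary duct has an inner luminal layer, marked by keratins such as Krt8 and Krt18, and an outer basal layer of contractile cells, marked by Krt14 and Acta2. Hormone-sensing luminal cells carry the receptors for oestrogen and progesterone and signal to their neighbours, while luminal progenitors give rise to the alveolar cells that make milk. In the gland, FGF10 comes from the stroma and reaches the epithelium through the receptor Fgfr2. Immediate early genes such as Fos are known to switch on within minutes of a growth factor or a stress and to switch off again.

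Levels are given in CPM, depth-scaled counts that use the TMM library size, in the order 2_1, 2_2 and 3 for BSA 72 h and 0h-1, 0h-2 and 0h-4 for 0 h. A log2 difference is BSA 72 h minus 0 h with its standard error (SE), and a gene was said to rise or fall when its Benjamini-Hochberg adjusted p in edgeR's quasi-likelihood test was under 0.05. Where a group had 0 counts of a gene, the fold is a bound set by 3 counts over that group. Where it had 1 to 3 counts, the ratio is given with a 95% interval, and both cover counting error only. The labels do not say that the 3 libraries of a group came from separate cultures or animals. The p-values measure the spread between libraries within groups, pooled over all 15 libraries, and this spread may be technical. In bulk RNA, fewer cells of a type and less RNA per cell cannot be told apart.

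The BSA 72 h libraries held 15784623 to 17763860 counts and the 0 h libraries 11965322 to 24261233. Transcripts of the mitochondrial genome made up 2.21% to 2.6% of counts at BSA 72 h and 2.16% to 2.59% at 0 h. The leading principal component of the 6 libraries, with 68.8% of the variance, separated the groups, and the next, with 16.8%, set 0h-1 (50.55) apart from 0h-2 (-27.42) and 0h-4 (-21.76). Correlations of log2 CPM, which all share the same genes and reference annotation, were 0.9909 to 0.9945 among the BSA 72 h libraries and 0.965 to 0.9814 among the 0 h libraries. The libraries 2_1 and 2_2 share a number, and a chi-square of their counts averaged 4.32 a gene, against 9.58 and 11.7 between either and library 3. The labels do not say whether 2_1 and 2_2 came from 1 culture, in which case the group holds fewer than 3 separate cultures. Both were used as libraries of their own. With the 2 summed, 3362 genes were called between BSA 72 h and 0 h, against 4568. The labelled cell type was borne out by its defining markers. Epcam, an adhesion protein of epithelium, had 1588, 1606 and 1479 CPM in the BSA 72 h libraries, against 2882, 3590.4 and 3919 CPM at 0 h. Cdh1, which encodes E-cadherin, had 203, 214 and 209.7 CPM in the BSA 72 h libraries, against 320.2, 351 and 358 CPM at 0 h.

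In all, 4568 genes (25.2% of those tested) differed between BSA 72 h and 0 h, 2210 higher (12.2%) and 2358 lower (13%). Of these 1470 were at least 2-fold higher and 1136 at least 2-fold lower, and 721 and 456 changed at least 4-fold. Without 0h-1, which had high proliferation transcripts, 4208 of 18634 genes (22.6%) were called, 2208 higher and 2000 lower, and 3517 genes were called in the same direction with and without it. The 3 and 3 libraries did not overlap in 21.9% of tested genes in the higher direction and 23.5% in the lower. The median log2 difference of all tested genes was -0.0184, and 0.00548 without 0h-1. The groups of genes that stood furthest from the background in the higher direction were squamous differentiation, glycolysis, sterol synthesis and the NRF2 response. In the lower direction they were MHC class II, erythroid genes, immediate early genes and immune markers. The counts of each list below are to be read against the shares of all tested genes, 12.2% higher and 13% lower. Without 0h-1 these shares were 11.8% and 10.7%. A list near these shares was called no more often than tested genes as a whole.

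**Figure D1:**
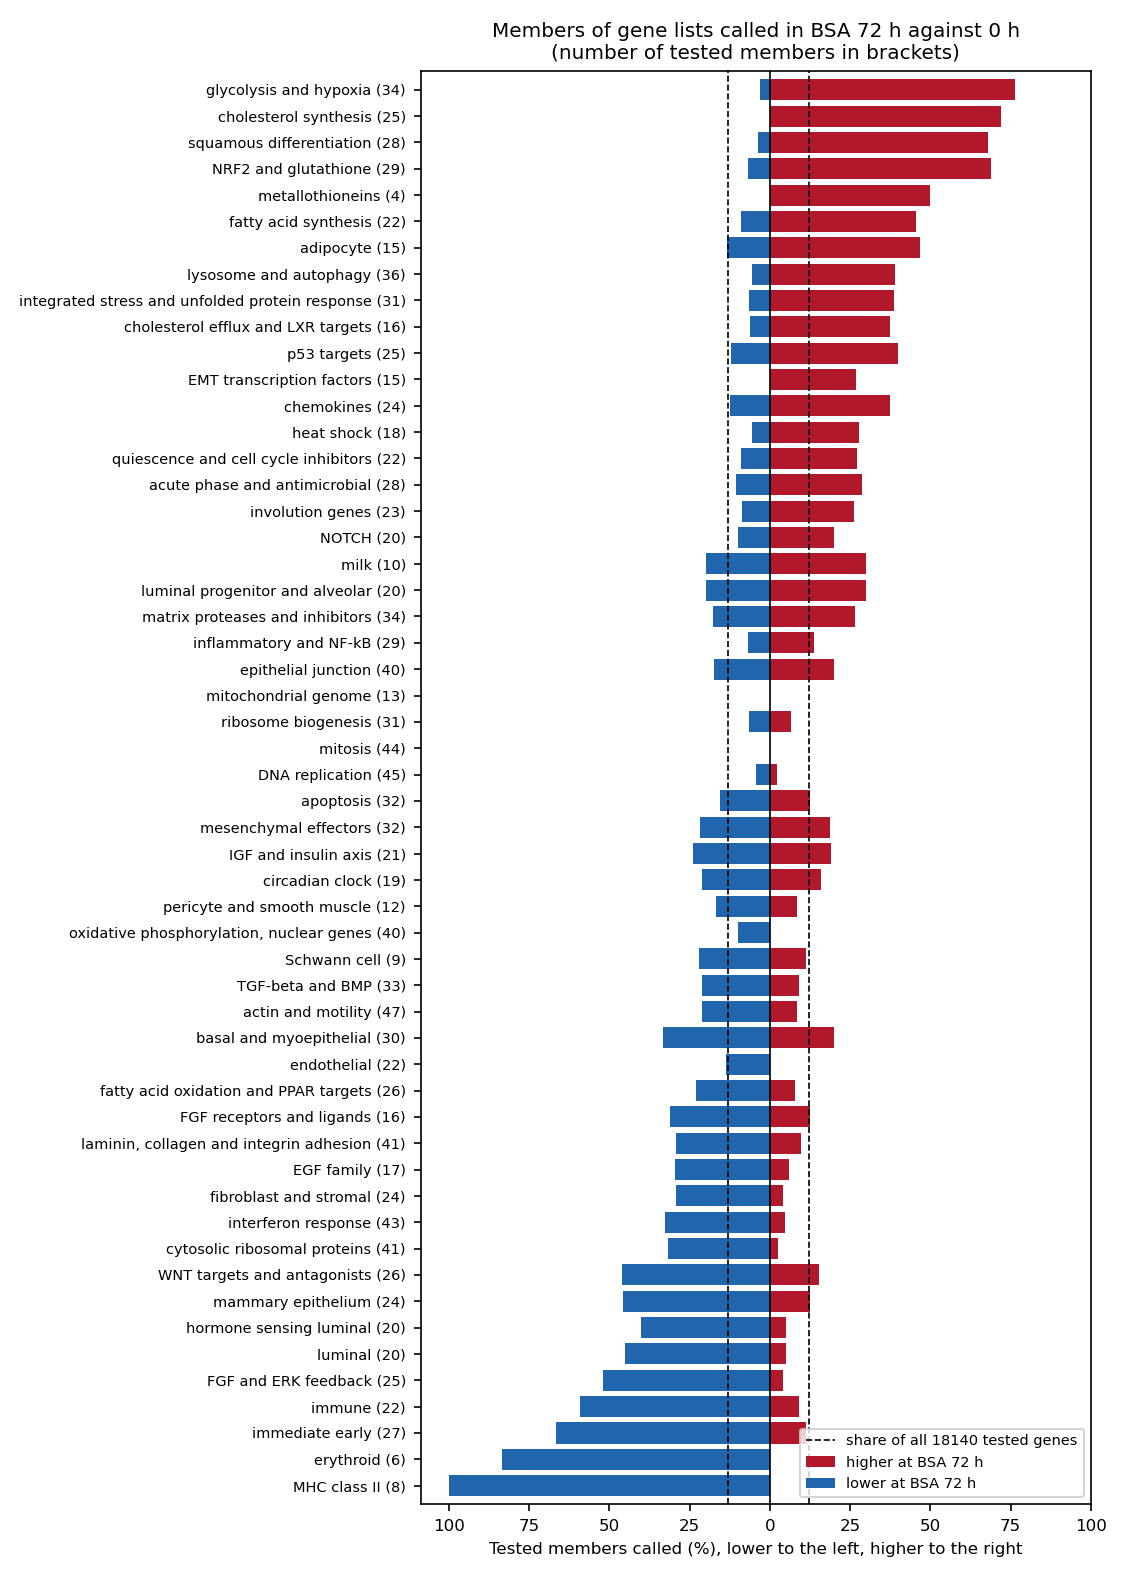
Share of the tested members of each gene list (number in brackets) that were called higher (right, red) or lower (left, blue) at BSA 72 h than at 0 h, in percent, with dashed lines at the share of all 18140 tested genes (12.2% higher, 13% lower). Squamous, cholesterol and glycolysis lists lie at the top, and the MHC class II and erythroid lists at the bottom.

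Most immediate early genes, many of them transcription factors that respond first to a stimulus, fell. Fos, a subunit of the AP-1 transcription factor, had 48.4, 47.7 and 51.6 CPM in the BSA 72 h libraries, against 4125, 20850.0 and 12628 CPM at 0 h. Fos differed by -7.99 ± 0.53 on the log2 scale (adjusted p = 3.77e-07). Without 0h-1, Fos differed by -8.41 ± 0.32 (adjusted p = 1.42e-09), and its adjusted p over all settings lay between 1.39e-91 and 0.00144. Jun, the partner of Fos in AP-1, had 82.7, 83.8 and 96.2 CPM in the BSA 72 h libraries, against 1903, 5619.7 and 3890.0 CPM at 0 h. Jun differed by -5.44 ± 0.34 on the log2 scale (adjusted p = 1.47e-07). Without 0h-1, Jun differed by -5.76 ± 0.23 (adjusted p = 1.42e-09), and its adjusted p over all settings lay between 3.03e-74 and 0.000662. In both genes each BSA 72 h library lay more than 10-fold under each 0 h library, and the 0 h libraries spread widely, 0h-1 being the lowest of them. Fosb, another AP-1 subunit, was almost absent at BSA 72 h, with 0.0513, 0.0589 and 0.231 CPM in the BSA 72 h libraries, against 71.3, 286 and 159.6 CPM at 0 h (log2 difference -10.49 ± 0.69, adjusted p = 7.78e-07). Ier2, a nuclear immediate early protein, had 88.3, 95.98 and 96.3 CPM with BSA for 72 h and 1063, 3109 and 2152 CPM at 0 h (-4.49 ± 0.31, adjusted p = 3.25e-07). Egr1, a zinc finger factor induced by ERK, had 111.8, 117 and 139.8 CPM with BSA for 72 h and 859, 3972 and 2444 CPM at 0 h (-4.30 ± 0.45, adjusted p = 1.76e-05). Atf3, a stress-induced repressor, fell (-4.89 ± 0.79, adjusted p = 0.000924), as did Socs3, a feedback inhibitor of cytokine signalling (-2.67 ± 0.41, adjusted p = 0.000467), and Btg2, an antiproliferative gene induced early (-3.24 ± 0.28, adjusted p = 2.26e-06). In the immediate early list, of 27 tested members 3 rose and 18 fell (median log2 difference -2.22). Without 0h-1, immediate early list members called higher and lower numbered 2 and 18 (median -2.46). Their summed level was 1800.4 to 1888 CPM across the BSA 72 h libraries and 10964 to 45987 CPM at 0 h. The members that rose with all libraries were Fosl2 (1.49 ± 0.21, adjusted p = 0.000102), Nr4a2 (1.53 ± 0.27, adjusted p = 0.000853) and Ier3 (1.58 ± 0.53, adjusted p = 0.0459, but 0.0548 to 0.103 without 0h-1, 0h-4, BSA 72 h 2_1, BSA 72 h 2_2 or BSA 72 h 3), named after their values were seen.

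Many targets and brakes of the FGF and ERK pathway fell as well. Dusp6, a phosphatase that switches off ERK, had 24.8, 21.6 and 23.6 CPM in the BSA 72 h libraries, against 103, 143 and 135 CPM at 0 h. Dusp6 differed by -2.44 ± 0.23 on the log2 scale (adjusted p = 4.99e-06). Without 0h-1, Dusp6 differed by -2.58 ± 0.24 (adjusted p = 4.12e-06), and its adjusted p over all settings lay between 5.94e-22 and 9.76e-05. The ETS factor Etv4 (-2.29 ± 0.35, adjusted p = 0.000233), its relative Etv5 (-1.17 ± 0.29, adjusted p = 0.00964) and Spry1, a Sprouty inhibitor of receptor tyrosine kinases (-1.69 ± 0.20, adjusted p = 2.37e-05), were lower, while Spry2 averaged 8.99 ± 1.18 CPM at BSA 72 h and 9.18 ± 1.401 CPM at 0 h (SD, n = 3 each; adjusted p = 0.978). In the feedback list, of 25 tested members 1 rose and 13 fell (median log2 difference -0.57). Without 0h-1, FGF and ERK feedback list members called higher and lower numbered 1 and 10 (median -0.63). In the FGF and ERK feedback list, rises numbered 3 without 0h-2. Fgfr2 itself, the epithelial receptor for FGF10, had 70.2, 75.2 and 77.7 CPM in the BSA 72 h libraries, against 437, 475 and 637 CPM at 0 h. Fgfr2 differed by -2.80 ± 0.21 on the log2 scale (adjusted p = 5.77e-07). Without 0h-1, Fgfr2 differed by -2.90 ± 0.21 (adjusted p = 4.38e-07), and its adjusted p over all settings lay between 3.56e-39 and 2.97e-05. The 3 BSA 72 h values sat far under all 3 at 0 h. The counting ignored strand, and what else the counted exons of Fgfr2 overlap was not examined. Fgf1, a ligand for all FGF receptors, fell (-2.34 ± 0.17, adjusted p = 4.7e-07), as did Flrt3, a membrane protein that modulates FGF signalling (-1.21 ± 0.18, adjusted p = 0.000171), whereas Fgfbp1, a carrier that releases FGFs from matrix, rose (3.13 ± 0.36, adjusted p = 3.56e-05). Among FGF receptors and ligands, of 16 tested members 2 rose and 5 fell (median log2 difference 0.01). Without 0h-1, FGF receptors and ligands list members called higher and lower numbered 1 and 6 (median 0).

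Other signalling families gave calls in both directions, where 12.2% of all tested genes rose and 13% fell. In the EGF family, of 17 tested members 1 rose and 5 fell (median log2 difference -0.17). Without 0h-1, EGF family list members called higher and lower numbered 1 and 5 (median -0.10). In the EGF family list, rises numbered 3 without 0h-2. In the EGF family list, falls numbered 2 without BSA 72 h 2_2 and 3 without 0h-4, BSA 72 h 2_1 or BSA 72 h 3. The receptor genes Erbb2 (-1.24 ± 0.15, adjusted p = 3.72e-05), Erbb4 (-1.45 ± 0.38, adjusted p = 0.0118, but 0.0526 without BSA 72 h 2_2) and Erbb3 (-0.54 ± 0.17, adjusted p = 0.0324, but 0.0719 to 0.133 without 0h-2, 0h-4, BSA 72 h 2_1, BSA 72 h 2_2 or BSA 72 h 3) and the receptor inhibitor Errfi1 (-1.10 ± 0.19, adjusted p = 0.000575) fell, and the ligand Epgn, epigen, rose, with 23.1, 25.2 and 20.4 CPM in the BSA 72 h libraries, against 0.0845, 0.387 and 0.3301 CPM at 0 h (6.56 ± 0.82, adjusted p = 0.000131). In the IGF and insulin axis, of 21 tested members 4 rose and 5 fell (median log2 difference -0.43), with Txnip, an inhibitor of glucose uptake (-2.60 ± 0.24, adjusted p = 3.67e-06), and the insulin receptor substrate Irs2 (-1.30 ± 0.17, adjusted p = 6.77e-05) lower and Igfbp3, an IGF carrier (2.66 ± 0.52, adjusted p = 0.00242), and Sesn3, a stress-induced regulator of growth signalling (1.12 ± 0.19, adjusted p = 0.00056), higher. Without 0h-1, IGF and insulin axis list members called higher and lower numbered 4 and 4 (median -0.15). In the WNT list, of 26 tested members 4 rose and 12 fell (median log2 difference -0.65). Without 0h-1, WNT targets and antagonists list members called higher and lower numbered 4 and 10 (median -0.57). Wnt4, the ligand that hormone-sensing cells release, had 18.6, 18.3 and 26.4 CPM in the BSA 72 h libraries, against 66.7, 189 and 207 CPM at 0 h (-2.87 ± 0.41, adjusted p = 0.000262), and the receptor Lgr6 fell (-1.06 ± 0.15, adjusted p = 0.000119), while the feedback inhibitor Nkd2 (3.03 ± 0.30, adjusted p = 1.01e-05) and the receptor Lgr4 (1.53 ± 0.18, adjusted p = 2.23e-05) rose.

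For NOTCH, of 20 tested members 4 rose and 2 fell (median log2 difference 0.28), against 12.2% and 13% of all tested genes. Without 0h-1, NOTCH list members called higher and lower numbered 2 and 3 (median 0.34). In the NOTCH list, rises numbered 2 without 0h-4 or BSA 72 h 3. The ligands Dll1 (1.01 ± 0.18, adjusted p = 0.000761) and Jag1 (0.70 ± 0.18, adjusted p = 0.00936) and the receptor Notch1 (0.80 ± 0.23, adjusted p = 0.0185, but 0.0511 to 0.0642 without 0h-1, 0h-4, BSA 72 h 2_2 or BSA 72 h 3) rose, and Lfng, a glycosyltransferase that modifies Notch receptors, fell (-1.96 ± 0.32, adjusted p = 0.000422). For TGF-beta and BMP, of 33 tested members 3 rose and 7 fell (median log2 difference -0.30), against the same 12.2% and 13%. Without 0h-1, TGF-beta and BMP list members called higher and lower numbered 4 and 8 (median -0.24). The activin subunit Inhbb (-1.26 ± 0.14, adjusted p = 2.26e-05), the receptor Tgfbr2 (-0.90 ± 0.14, adjusted p = 0.000262) and the signal transducer Smad3 (-1.12 ± 0.18, adjusted p = 0.000316) fell, and Id2, an inhibitor of differentiation induced by BMP, rose (1.06 ± 0.18, adjusted p = 0.000689).

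Proliferation genes gave different answers with and without 0h-1. That library was singled out for its high proliferation transcripts, so an upward shift of these genes without it was built into the choice. Mki67, the antigen Ki-67 of cycling cells, had 22.8, 24.4 and 21.2 CPM in the BSA 72 h libraries, against 49.1, 4.45 and 2.92 CPM at 0 h. Its level at BSA 72 h lay between 0h-1 and the other 0 h libraries, and Mki67 differed by 0.24 ± 0.76 on the log2 scale (adjusted p = 0.861). Without 0h-1, Mki67 differed by 2.66 ± 0.30 (adjusted p = 2.47e-05), and its adjusted p over all settings lay between 2.74e-06 and 0.988. Cdc25c, a phosphatase that triggers entry into mitosis, had 9.44, 9.02 and 8.198 CPM in the BSA 72 h libraries, against 22.2, 0.968 and 0.5502 CPM at 0 h. Cdc25c differed by 0.10 ± 0.87 on the log2 scale (adjusted p = 0.951). Without 0h-1, Cdc25c differed by 3.62 ± 0.30 (adjusted p = 1.22e-06), and its adjusted p over all settings lay between 1.22e-06 and 1. Mad2l1, a spindle checkpoint protein, had 69.4, 67.9 and 68.7 CPM with BSA for 72 h and 59.1, 12.1 and 10.8 CPM at 0 h (1.31 ± 0.49, adjusted p = 0.0685, but 2.59 ± 0.16 with adjusted p = 6.16e-08 without 0h-1). Aurka, a spindle kinase, had 19.1, 19.9 and 17.4 CPM with BSA for 72 h and 57.7, 13.5 and 19.7 CPM at 0 h (-0.71 ± 0.41, adjusted p = 0.244, but 0.0467 without 0h-2). In the mitosis list, of 44 tested members 0 rose and 0 fell (median log2 difference 0.07). Without 0h-1, mitosis list members called higher and lower numbered 41 and 0 (median 2.62). Their summed level was 1151 to 1227 CPM across the BSA 72 h libraries, against 2632 CPM in 0h-1, 406 CPM in 0h-2 and 340.4 CPM in 0h-4. With 0h-1 in the fit, limma voom with sample weights called 37 mitosis members higher, and DESeq2 called 1. For DNA replication genes, of 45 tested members 1 rose and 2 fell (median log2 difference -0.27). Without 0h-1, DNA replication list members called higher and lower numbered 23 and 0 (median 0.60). Its summed level was 1012 to 1048 CPM across the BSA 72 h libraries and 695 to 2362 CPM at 0 h. Pole2, a polymerase subunit, rose (0.94 ± 0.31, adjusted p = 0.0383, but 0.0753 to 0.137 without 0h-2, 0h-4, BSA 72 h 2_1, BSA 72 h 2_2 or BSA 72 h 3), while the replication helicase subunit Mcm6 (-1.24 ± 0.42, adjusted p = 0.0474, but 0.108 to 0.32 without 0h-1, BSA 72 h 2_1, BSA 72 h 2_2 or BSA 72 h 3) and the single-strand binding protein Rpa1 (-0.64 ± 0.22, adjusted p = 0.0409, but 0.0787 to 0.231 without 0h-1, BSA 72 h 2_1, BSA 72 h 2_2 or BSA 72 h 3) fell, and Pola2, a subunit of the priming polymerase, was not called (0.58 ± 0.29, adjusted p = 0.174, but 1.24 ± 0.15 with adjusted p = 3.74e-05 without 0h-1). The library 0h-1 was higher than both other 0 h libraries in 45 of 45 DNA replication genes and 43 of 44 mitosis genes, and above every BSA 72 h library in 43 and 42. All BSA 72 h libraries lay above 0h-2 and 0h-4 in 37 DNA replication genes and 42 mitosis genes. The high place of 0h-1 restates why it was singled out, and the shares of all tested genes with these orders were not computed.

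**Figure D2:**
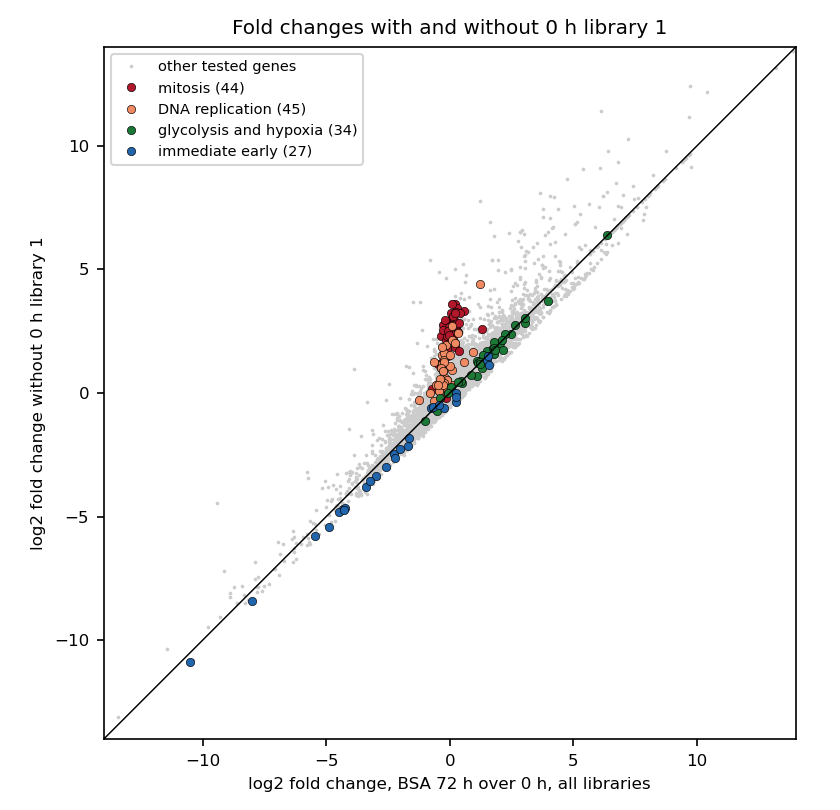
Fitted log2 fold change of BSA 72 h over 0 h with all libraries (horizontal axis) and without 0 h library 1 (vertical axis) for tested genes (grey), with 4 gene lists coloured and a line of equality. Mitosis and DNA replication genes lie above the line around 0 on the horizontal axis (medians 0.07 and -0.27 with all libraries, 2.62 and 0.60 without 0h-1), while glycolysis and immediate early genes follow the line.

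The promoters of mitosis genes are shown because the calls of this list depended on 0h-1, the library singled out for its high proliferation transcripts. The cell cycle homology region, here searched as TTTGAA on both strands, is an element through which such genes are known to be repressed outside the cell cycle. RefSeq promoters of build GRCm38.p6, 250 bases before to 50 after a gene's start, were matched for 11818 of the tested genes. TTTGAA lay in 28 of 37 mitosis promoters (75.7%) and in 12.5% of all 11818, and CCAAT in 28 of 37 against 38.7%. A stretch of the Mki67 promoter (minus strand, chr7:135716436-135716535) is printed with TTTGAA, or its complement TTCAAA, in capitals.
Mki67: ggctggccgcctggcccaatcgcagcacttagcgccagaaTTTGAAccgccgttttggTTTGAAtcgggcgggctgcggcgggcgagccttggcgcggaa

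Among brakes of the cell cycle, Cdkn1a, the p53-induced inhibitor p21, had 296, 299 and 250.7 CPM in the BSA 72 h libraries, against 44.1, 69.6 and 35.8 CPM at 0 h. Cdkn1a differed by 2.50 ± 0.35 on the log2 scale (adjusted p = 0.000196), with no overlap between the groups. Without 0h-1, Cdkn1a differed by 2.42 ± 0.42 (adjusted p = 0.00109), and its adjusted p over all settings lay between 1.04e-11 and 0.00746. Cdkn2b, an inhibitor of the cyclin D kinases, rose (2.15 ± 0.35, adjusted p = 0.000421), as did the stress gene Gadd45b (0.86 ± 0.20, adjusted p = 0.00632). Among quiescence genes and inhibitors, of 22 tested members 6 rose and 2 fell (median log2 difference 0.02), against 12.2% and 13% of all tested genes. Without 0h-1, quiescence and cell cycle inhibitors list members called higher and lower numbered 4 and 2 (median 0.16). Ccnd1, cyclin D1, had 135, 136 and 134 CPM with BSA for 72 h and 668, 239.9 and 214 CPM at 0 h and fell (-1.47 ± 0.38, adjusted p = 0.0129). The size of this fall leans on 0h-1, its highest 0 h library. Without 0h-1, Ccnd1 had an adjusted p of 0.0429, and its adjusted p over all settings lay between 0.000141 and 0.082. Myc, a driver of growth, fell (-0.68 ± 0.18, adjusted p = 0.0113). Among p53 targets, of 25 tested members 10 rose and 3 fell (median log2 difference 0.33), with Perp, a desmosomal protein (1.51 ± 0.17, adjusted p = 1.66e-05), higher and Plk2, a polo-like kinase (-3.33 ± 0.27, adjusted p = 1e-06), lower. Without 0h-1, p53 targets list members called higher and lower numbered 7 and 3 (median 0.12).

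The glycolysis and hypoxia list rose in most of its members. Ldha, which makes lactate from pyruvate, had 3887, 4052 and 3712 CPM in the BSA 72 h libraries, against 976, 981 and 749 CPM at 0 h. Ldha differed by 2.11 ± 0.24 on the log2 scale (adjusted p = 2.04e-05). Without 0h-1, Ldha differed by 2.16 ± 0.28 (adjusted p = 6.91e-05), and its adjusted p over all settings lay between 1.63e-19 and 0.000218. Slc16a3, the exporter of lactate, had 61.1, 69.7 and 54.4 CPM in the BSA 72 h libraries, against 0.7604, 0.677 and 0.7703 CPM at 0 h. Slc16a3 differed by 6.36 ± 0.62 on the log2 scale (adjusted p = 1.84e-05). Without 0h-1, Slc16a3 differed by 6.38 ± 0.80 (adjusted p = 0.000177), and its adjusted p over all settings lay between 9.21e-36 and 0.000389. In both genes the lowest BSA 72 h library was several times the highest 0 h library. Aldoa, aldolase of glycolysis, had 5617, 6113 and 6196 CPM with BSA for 72 h and 909.6, 1404 and 887 CPM at 0 h (2.49 ± 0.32, adjusted p = 6.64e-05). Pkm, pyruvate kinase, had 3226, 3485 and 3959 CPM with BSA for 72 h and 1180.3, 1123 and 881 CPM at 0 h (1.74 ± 0.20, adjusted p = 2.5e-05). Pfkp, a phosphofructokinase of glycolysis (2.01 ± 0.15, adjusted p = 6.43e-07), Ankrd37, a target of hypoxia-inducible factor (3.03 ± 0.31, adjusted p = 7.96e-06), and Bnip3, a mitophagy receptor induced by hypoxia (3.06 ± 0.60, adjusted p = 0.003), also rose. In the list, of 34 tested members 26 rose and 1 fell (median log2 difference 1.43), a share far above the 12.2% of all genes called higher. Without 0h-1, glycolysis and hypoxia list members called higher and lower numbered 25 and 2 (median 1.52). Their summed level was 16838 to 18235 CPM across the BSA 72 h libraries and 4162 to 5609.9 CPM at 0 h. The member that fell was Egln3, an oxygen-sensing hydroxylase, named after its values were seen.

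**Figure D3:**
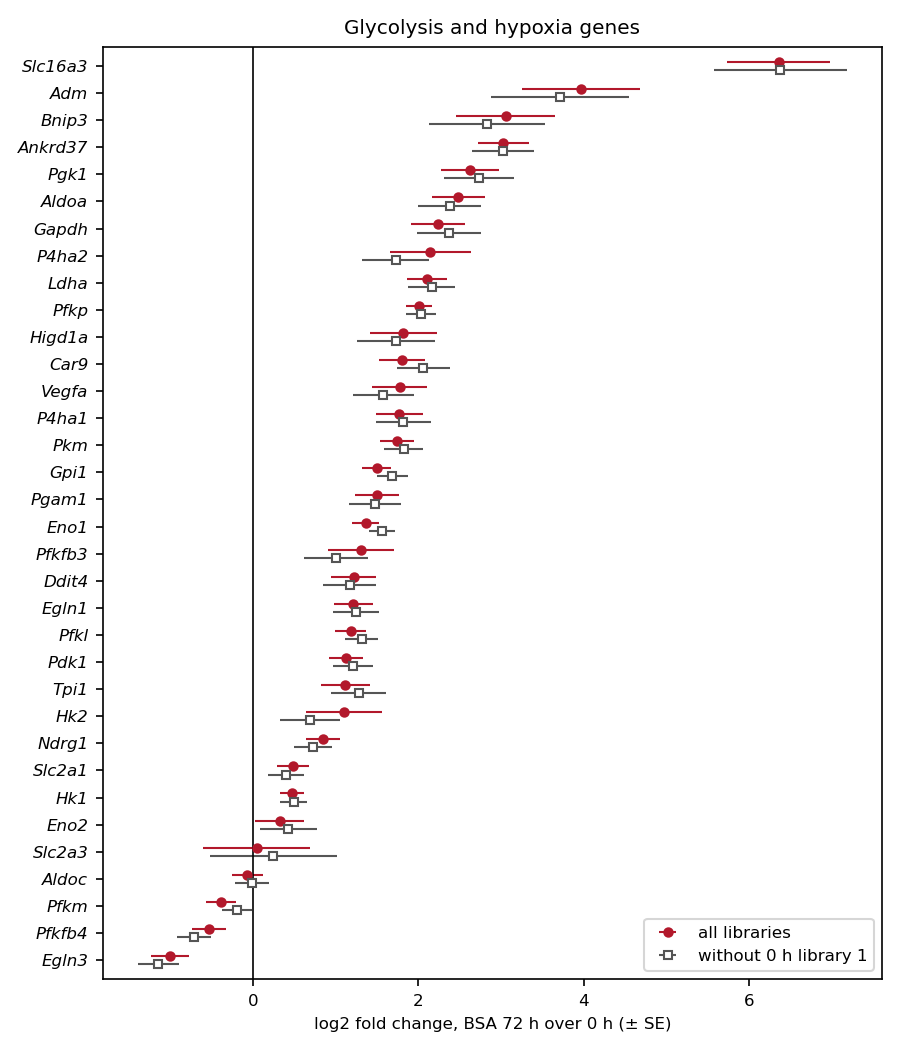
Log2 fold change of BSA 72 h over 0 h with its SE for each tested glycolysis and hypoxia gene, with all libraries (red circles) and without 0 h library 1 (open squares). Slc16a3 lies furthest to the right (6.36) and 26 of 34 genes were called higher, and both sets of points lie close to each other.

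The core of the hypoxia response element, searched as ACGTG on both strands, lay in 19 of 32 matched promoters of this list (59.4%) and in 25% of all 11818. It also lay in 10 of 16 promoters of the circadian clock list (62.5%). Of the named members, Ldha (plus strand, chr7:46845654-46845779), Slc16a3 (plus strand, chr11:120948992-120949091) and Bnip3 (minus strand, chr7:138909567-138909666) are shown with ACGTG, or its complement CACGT, in capitals. CACGTG holds the motif on both strands and is also the E-box that other factors bind.
Ldha: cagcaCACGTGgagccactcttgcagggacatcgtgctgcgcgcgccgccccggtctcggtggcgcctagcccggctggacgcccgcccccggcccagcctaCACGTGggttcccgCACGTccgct
Slc16a3: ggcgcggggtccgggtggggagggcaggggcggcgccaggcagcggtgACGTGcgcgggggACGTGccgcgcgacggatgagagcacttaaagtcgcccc
Bnip3: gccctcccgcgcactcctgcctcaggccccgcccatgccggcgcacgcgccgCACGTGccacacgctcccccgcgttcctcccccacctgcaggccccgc

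Most genes of the antioxidant list also rose. Nqo1, a quinone reductase and a standard target of the factor NRF2, had 534, 524 and 568 CPM in the BSA 72 h libraries, against 27.6, 54.3 and 49.1 CPM at 0 h. Nqo1 differed by 3.64 ± 0.22 on the log2 scale (adjusted p = 1.04e-07). Without 0h-1, Nqo1 differed by 3.39 ± 0.17 (adjusted p = 9.66e-09), and its adjusted p over all settings lay between 7.77e-66 and 0.000189. Hmox1, haem oxygenase, had 234, 245 and 271 CPM in the BSA 72 h libraries, against 18.9, 17.4 and 10.6 CPM at 0 h. Hmox1 differed by 3.999 ± 0.32 on the log2 scale (adjusted p = 1.61e-06). Without 0h-1, Hmox1 differed by 4.17 ± 0.38 (adjusted p = 5.82e-06), and its adjusted p over all settings lay between 4.95e-39 and 4.23e-05. The glutathione transferases Gsta3, with 42.7, 45.2 and 40.6 CPM with BSA for 72 h and 0.253, 0.0968 and 0.2201 CPM at 0 h (7.63 ± 0.44, adjusted p = 1.04e-07), and Gsta1 (5.32 ± 0.42, adjusted p = 7.78e-07) were near 0 CPM at 0 h, and their near-identical relatives make the counts of single members uncertain. In the NRF2 and glutathione list, of 29 tested members 20 rose and 2 fell (median log2 difference 1.08). Without 0h-1, NRF2 and glutathione list members called higher and lower numbered 20 and 2 (median 1.28). The antioxidant response core TGACNNNGC lay in 6 of 24 promoters of the NRF2 and glutathione list (25%) and in 14.7% of all. Some other lists had a higher share, such as the integrated stress and unfolded protein response list with 10 of 29 (34.5%). The summed level of the NRF2 and glutathione list is given next. Its summed level, 34136 to 40078 CPM across the BSA 72 h libraries and 8398 to 40334 CPM at 0 h, overlapped between the groups. Gpx3, a secreted glutathione peroxidase named after its values were seen, had 20849, 21372 and 26428 CPM in the BSA 72 h libraries, against 1755, 34974 and 9644 CPM at 0 h (log2 difference 0.57 ± 1.02, adjusted p = 0.743). Fth1, the ferritin heavy chain that stores iron, had 19744, 21605 and 24711 CPM in the BSA 72 h libraries, against 4723, 4684 and 3274 CPM at 0 h (2.38 ± 0.27, adjusted p = 1.86e-05) and Ftl1-ps1, a ferritin light chain copy whose counts are uncertain, rose alike (2.26 ± 0.27, adjusted p = 2.88e-05). Gpx1, a cytosolic peroxidase, rose (1.51 ± 0.29, adjusted p = 0.00151). In the metallothionein list, which holds metal-binding metallothioneins and also zinc transporters, of 4 tested members 2 rose and 0 fell (median log2 difference 1.35). The 4 tested members were Mt1, Mt2, Slc30a1 and Slc39a10. Without 0h-1, metallothioneins list members called higher and lower numbered 2 and 0 (median 1.69). Mt1 had 3124, 3529.9 and 2393 CPM with BSA for 72 h and 326, 308 and 289 CPM at 0 h (3.29 ± 0.26, adjusted p = 7.78e-07) and Mt2 rose (2.45 ± 0.41, adjusted p = 0.00082), while the zinc transporters Slc30a1 (0.26 ± 0.23, adjusted p = 0.461) and Slc39a10 (-0.054 ± 0.16, adjusted p = 0.853) were not called.

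Most sterol synthesis genes rose, as did many fatty acid synthesis genes. Insig1, a feedback sensor of sterols, had 23.2, 23.9 and 19.4 CPM in the BSA 72 h libraries, against 4.77, 2.71 and 4.897 CPM at 0 h. Insig1 differed by 2.39 ± 0.28 on the log2 scale (adjusted p = 3.22e-05). Without 0h-1, Insig1 differed by 2.49 ± 0.34 (adjusted p = 0.000124), and its adjusted p over all settings lay between 1.64e-14 and 0.000237. Msmo1 (1.77 ± 0.14, adjusted p = 8.86e-07) and Hsd17b7 (1.55 ± 0.18, adjusted p = 1.99e-05), enzymes of late sterol synthesis, rose too. In the cholesterol list, of 25 tested members 18 rose and 0 fell (median log2 difference 1.06), and none fell in either fit. Without 0h-1, cholesterol synthesis list members called higher and lower numbered 19 and 0 (median 1.16). Their summed level was 1303 to 1331 CPM across the BSA 72 h libraries and 729.6 to 825 CPM at 0 h, so the groups did not overlap. CCAAT, a box bound by NF-Y, lay in 15 of 17 of their promoters (88.2%) and in 38.7% of all. For cholesterol efflux and LXR targets, of 16 tested members 6 rose and 1 fell (median log2 difference 0.16), with the efflux pump Abca1 (1.67 ± 0.23, adjusted p = 0.000131) and the lipogenic factor Srebf1 (0.96 ± 0.14, adjusted p = 0.00021) higher. Without 0h-1, cholesterol efflux and LXR targets list members called higher and lower numbered 5 and 2 (median 0.18). For fatty acid synthesis, of 22 tested members 10 rose and 2 fell (median log2 difference 0.34). Without 0h-1, fatty acid synthesis list members called higher and lower numbered 8 and 1 (median 0.46). Scd1, a desaturase, had 503, 476 and 547 CPM in the BSA 72 h libraries, against 21.6, 43.5 and 48.3 CPM at 0 h. Scd1 differed by 3.75 ± 0.25 on the log2 scale (adjusted p = 2.51e-07). Without 0h-1, Scd1 differed by 3.47 ± 0.18 (adjusted p = 1.31e-08), and its adjusted p over all settings lay between 2.21e-55 and 0.000627. Its relative Scd2 (3.07 ± 0.23, adjusted p = 5.77e-07), the NADPH source Me1 (3.24 ± 0.32, adjusted p = 1.08e-05) and the synthase Fasn (1.10 ± 0.16, adjusted p = 0.000145) rose.

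Fatty acid oxidation genes moved unevenly: of 26 tested members 2 rose and 6 fell (median log2 difference 0.01). Without 0h-1, fatty acid oxidation and PPAR targets list members called higher and lower numbered 5 and 4 (median 0.15). In the fatty acid oxidation and PPAR targets list, rises numbered 0 without BSA 72 h 2_1 or BSA 72 h 2_2. Cpt1a, the gate of mitochondrial fatty acid import (-1.14 ± 0.30, adjusted p = 0.0136), Acadl (-0.82 ± 0.18, adjusted p = 0.00372) and Ehhadh (-0.78 ± 0.18, adjusted p = 0.0061), enzymes of beta-oxidation, fell. Without 0h-1, Cpt1a differed by -0.60 (adjusted p = 0.0489), Acadl by -0.55 (adjusted p = 0.0145) and Ehhadh by -0.64 (adjusted p = 0.0295). The summed level of this list was 4096 to 4366 CPM across the BSA 72 h libraries. At 0 h it was 7092 CPM in 0h-1, 2590 CPM in 0h-2 and 2481 CPM in 0h-4. Among nuclear genes of oxidative phosphorylation, of 40 tested members 0 rose and 4 fell (median log2 difference -0.21). Without 0h-1, oxidative phosphorylation nuclear genes list members called higher and lower numbered 0 and 2 (median -0.13). In the oxidative phosphorylation nuclear genes list, falls numbered 1 without BSA 72 h 3 and 2 without 0h-2 or BSA 72 h 2_1. Atp5b (-0.61 ± 0.16, adjusted p = 0.0102) and Atp5c1 (-0.53 ± 0.15, adjusted p = 0.0147, but 0.0584 to 0.0594 without 0h-1 or BSA 72 h 3) of ATP synthase, Cox4i1 of cytochrome oxidase (-0.71 ± 0.20, adjusted p = 0.0181, but 0.0505 to 0.0716 without 0h-2, BSA 72 h 2_1 or BSA 72 h 3) and Uqcrc2 of complex III (-0.34 ± 0.11, adjusted p = 0.0277, but 0.053 to 0.103 without 0h-1, 0h-2, 0h-4, BSA 72 h 2_1, BSA 72 h 2_2 or BSA 72 h 3) were those that fell. Among transcripts of the mitochondrial genome, of 13 tested members 0 rose and 0 fell (median log2 difference -0.43), and those with the smallest p, mt-Nd6 (0.59 ± 0.30, adjusted p = 0.175) and mt-Co3 (-0.90 ± 0.48, adjusted p = 0.198), which encode subunits of complex I and of cytochrome oxidase, were not called. Without 0h-1, mitochondrial genome list members called higher and lower numbered 0 and 0 (median -0.36). For cytosolic ribosomal proteins, of 41 tested members 1 rose and 13 fell (median log2 difference -0.40). Without 0h-1, cytosolic ribosomal proteins list members called higher and lower numbered 0 and 7 (median -0.31). In the cytosolic ribosomal proteins list, falls numbered 7 without BSA 72 h 3. Rpl32 (-0.79 ± 0.16, adjusted p = 0.00238), Rps2 (-0.69 ± 0.15, adjusted p = 0.00373), Rpl4 (-0.75 ± 0.17, adjusted p = 0.00438) and Rpl7 (-0.58 ± 0.14, adjusted p = 0.00761) fell, in a family whose processed copies make counts uncertain. For ribosome biogenesis, of 31 tested members 2 rose and 2 fell (median log2 difference 0.02), with the nucleolar factors Gnl3 (0.61 ± 0.12, adjusted p = 0.00159) and Utp20 (0.57 ± 0.15, adjusted p = 0.0124, but 0.0553 without BSA 72 h 2_2) higher and Utp4 lower (-0.48 ± 0.11, adjusted p = 0.00516). Without 0h-1, ribosome biogenesis list members called higher and lower numbered 2 and 2 (median -0.04).

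Several luminal genes fell and some basal keratins rose. Krt14, the basal keratin, had 3392, 3690.5 and 3917 CPM in the BSA 72 h libraries, against 615, 832 and 932 CPM at 0 h. Krt14 differed by 2.21 ± 0.19 on the log2 scale (adjusted p = 2.06e-06). Without 0h-1, Krt14 differed by 2.05 ± 0.20 (adjusted p = 6.25e-06), and its adjusted p over all settings lay between 9.3e-38 and 0.000118. Krt5, its partner, had 1214, 1308 and 1337 CPM in the BSA 72 h libraries, against 361, 349.8 and 349.6 CPM at 0 h. Krt5 differed by 1.86 ± 0.15 on the log2 scale (adjusted p = 1.02e-06). Without 0h-1, Krt5 differed by 1.88 ± 0.18 (adjusted p = 5.11e-06), and its adjusted p over all settings lay between 2.95e-61 and 2.38e-05. Krt19, a luminal keratin, had 4084, 4579 and 5029.8 CPM in the BSA 72 h libraries, against 10129, 14443 and 16343 CPM at 0 h. Krt19 differed by -1.58 ± 0.21 on the log2 scale (adjusted p = 6.48e-05). Without 0h-1, Krt19 differed by -1.76 ± 0.19 (adjusted p = 1.8e-05), and its adjusted p over all settings lay between 3.55e-16 and 0.00115. In none of these did a BSA 72 h library reach the range of the 0 h libraries. Krt8 (-0.98 ± 0.23, adjusted p = 0.00551) and Krt18 (-1.33 ± 0.29, adjusted p = 0.00366), the luminal keratin pair, fell as well. Among mammary epithelium genes, of 24 tested members 3 rose and 11 fell (median log2 difference -0.42). Without 0h-1, mammary epithelium list members called higher and lower numbered 3 and 12 (median -0.53). In the luminal list, of 20 tested members 1 rose and 9 fell (median log2 difference -0.77), with Wfdc2, a secreted protease inhibitor, at 346, 386 and 449.9 CPM with BSA for 72 h and 7251, 4536 and 3207 CPM at 0 h (-3.67 ± 0.30, adjusted p = 1.02e-06), and the transcription factors Spdef (-2.70 ± 0.25, adjusted p = 2.99e-06) and Gata3 (-1.30 ± 0.27, adjusted p = 0.00248) lower. Without 0h-1, luminal list members called higher and lower numbered 1 and 9 (median -0.90). The member of the luminal list that rose was Anxa1, a phospholipid-binding protein, with 5744, 5644 and 5647 CPM with BSA for 72 h and 1017, 1560.2 and 1266 CPM at 0 h (2.15 ± 0.30, adjusted p = 0.000115). The summed level of the luminal list was 22572 to 23780.4 CPM across the BSA 72 h libraries and 40076 to 52547 CPM at 0 h.

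**Figure D4:**
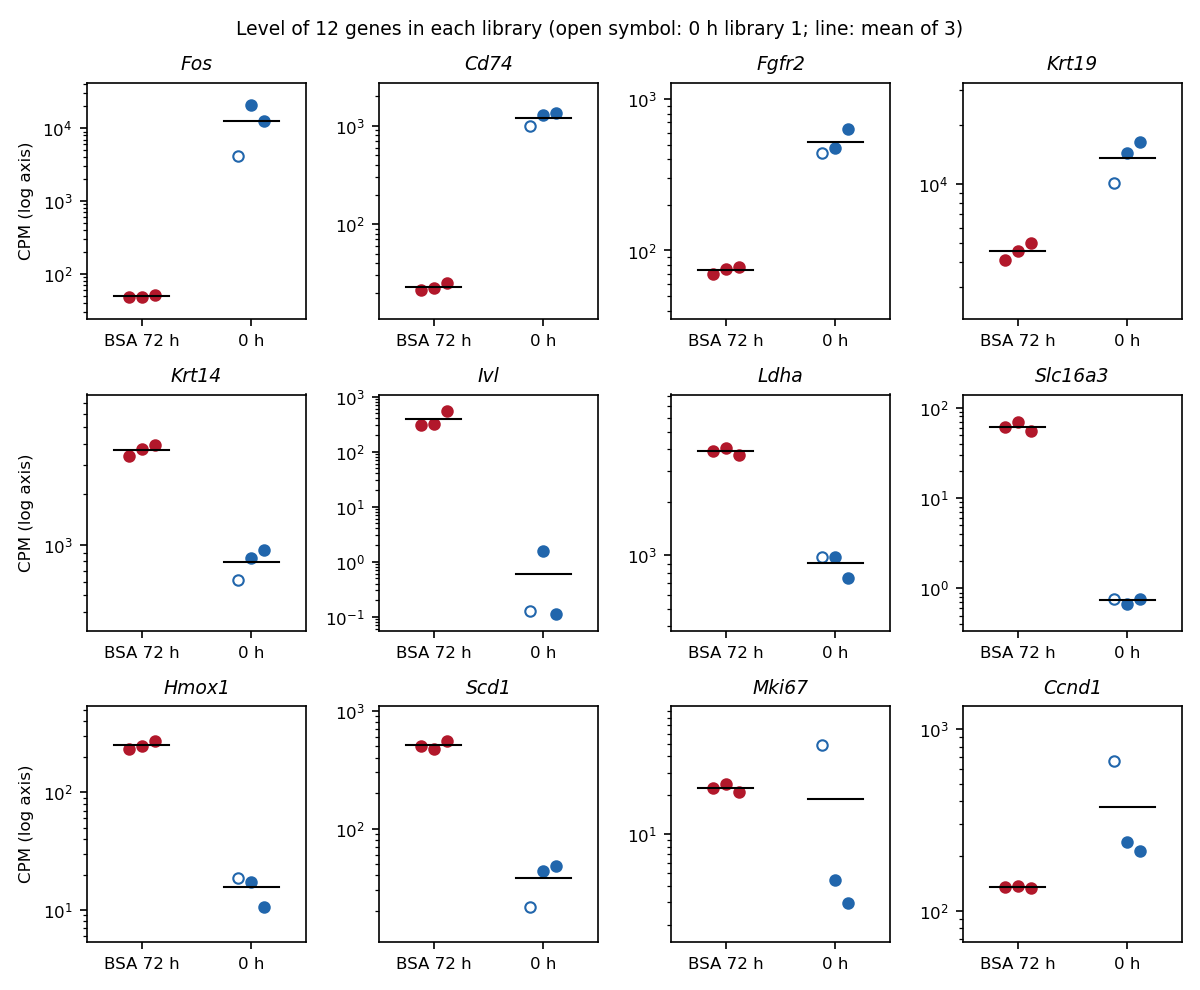
Level of 12 genes in each library as CPM on a log axis, BSA 72 h left (red) and 0 h right (blue), with 0 h library 1 as an open symbol and a line at the mean of 3 libraries. Fos, Cd74, Fgfr2 and Krt19 are lower at BSA 72 h, Krt14, Ivl, Ldha, Slc16a3, Hmox1 and Scd1 are higher, and for Mki67 the open symbol lies above and the other 0 h symbols below the BSA 72 h libraries.

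Hormone-sensing genes were among the luminal falls. Cited1, a coactivator of the oestrogen receptor, had 23.5, 26.6 and 17.9 CPM in the BSA 72 h libraries, against 1781, 530.1 and 1103 CPM at 0 h. Cited1 differed by -5.65 ± 0.52 on the log2 scale (adjusted p = 8.46e-06). Without 0h-1, Cited1 differed by -5.17 ± 0.45 (adjusted p = 6.25e-06), and its adjusted p over all settings lay between 2.46e-41 and 0.00232. Foxa1, the pioneer factor for that receptor, had 114, 108 and 105 CPM with BSA for 72 h and 546, 396 and 609 CPM at 0 h (-2.24 ± 0.29, adjusted p = 7.12e-05), and Tph1, an enzyme of serotonin synthesis, fell (-5.78 ± 1.01, adjusted p = 0.00113). The receptors were not called: Esr1 had 62.6, 64.9 and 65.6 CPM with BSA for 72 h and 66.8, 83.7 and 122 CPM at 0 h (-0.50 ± 0.39, adjusted p = 0.404). Pgr had 121, 111.1 and 118 CPM with BSA for 72 h and 13.3, 144 and 118 CPM at 0 h (0.35 ± 0.66, adjusted p = 0.755), where 0h-1 was the low library. In this list, of 20 tested members 1 rose and 8 fell (median log2 difference -0.43), and Greb1, an oestrogen-induced gene named after its values were seen, was the member that rose, with 43.6, 39.4 and 44.1 CPM with BSA for 72 h and 0.465, 3.39 and 0.385 CPM at 0 h (5.18 ± 0.92, adjusted p = 0.00176). Without 0h-1, hormone sensing luminal list members called higher and lower numbered 1 and 7 (median -0.64). Among luminal progenitor and alveolar genes, of 20 tested members 6 rose and 4 fell (median log2 difference 0.35). Without 0h-1, luminal progenitor and alveolar list members called higher and lower numbered 5 and 5 (median 0.10). Wfdc18, a secreted protein of the alveolar lineage, had 11828, 12029 and 7968 CPM with BSA for 72 h and 2299, 1919 and 2559.8 CPM at 0 h (2.23 ± 0.28, adjusted p = 4.13e-05). The integrin Itgb3 (1.87 ± 0.27, adjusted p = 0.000148) and the retinoic acid enzyme Aldh1a3 (1.60 ± 0.23, adjusted p = 0.000177) rose, while the alveolar factor Elf5 averaged 35.9 ± 3.09 CPM at BSA 72 h and 27.4 ± 1.11 CPM at 0 h (SD, n = 3 each; adjusted p = 0.189).

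Milk genes split. Csn3, a casein, had 93.7, 104 and 54.2 CPM in the BSA 72 h libraries, against 731, 3712 and 1224 CPM at 0 h. Csn3 differed by -4.49 ± 0.60 on the log2 scale (adjusted p = 0.00017). Without 0h-1, Csn3 differed by -4.88 ± 0.51 (adjusted p = 2.37e-05), and its adjusted p over all settings lay between 1.39e-13 and 0.0163. Spp1, osteopontin, had 199, 209.5 and 169 CPM in the BSA 72 h libraries, against 0.7604, 0.2903 and 0.165 CPM at 0 h. Spp1 differed by 8.73 ± 0.43 on the log2 scale (adjusted p = 2.29e-08). Without 0h-1, Spp1 differed by 9.77 ± 0.47 (adjusted p = 5.08e-09), and its adjusted p over all settings lay between 2.26e-98 and 2.94e-05. In the milk list, of 10 tested members 3 rose and 2 fell (median log2 difference 0.06), with the milk fat globule protein Mfge8 lower (-1.31 ± 0.33, adjusted p = 0.00876) and the mucin Muc15 higher (1.15 ± 0.32, adjusted p = 0.016, but 0.0541 to 0.064 without 0h-2, 0h-4 or BSA 72 h 2_1). Without 0h-1, milk list members called higher and lower numbered 4 and 2 (median 0.40). In the milk list, rises numbered 1 without 0h-4 or BSA 72 h 2_1. Csn2, the major casein, did not pass the filter, with 2, 1 and 0 counts at BSA 72 h and 26, 0 and 0 at 0 h.

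Among basal genes, several contractile genes fell while the p63 transcript was not called. Acta2, smooth muscle actin, had 3435, 3812 and 4474 CPM in the BSA 72 h libraries, against 13081, 7987 and 10399 CPM at 0 h. Acta2 differed by -1.42 ± 0.27 on the log2 scale (adjusted p = 0.00132). Without 0h-1, Acta2 differed by -1.24 ± 0.28 (adjusted p = 0.00484), and its adjusted p over all settings lay between 6.69e-07 and 0.0109. Tpm2, a tropomyosin, had 308, 312 and 353 CPM with BSA for 72 h and 925, 1128 and 1303 CPM at 0 h (-1.79 ± 0.18, adjusted p = 5.69e-06). Myh11, smooth muscle myosin, had 65.7, 76.6 and 109.7 CPM with BSA for 72 h and 299.5, 296 and 285 CPM at 0 h (-1.804 ± 0.19, adjusted p = 8.42e-06). Trp63, the basal master regulator p63, had 51.01, 53.7 and 67.4 CPM with BSA for 72 h and 52.3, 42.97 and 49.3 CPM at 0 h (0.25 ± 0.16, adjusted p = 0.284). In the basal list, of 30 tested members 6 rose and 10 fell (median log2 difference -0.42). Without 0h-1, basal and myoepithelial list members called higher and lower numbered 6 and 8 (median -0.40). Col17a1, a hemidesmosome collagen, was among those that rose (1.07 ± 0.16, adjusted p = 0.000206).

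Squamous differentiation genes, which belong to stratified epithelia such as epidermis, had the highest median difference of the 54 lists. Ivl, involucrin of the cornified envelope, had 305, 317 and 544 CPM in the BSA 72 h libraries, against 0.127, 1.55 and 0.11005 CPM at 0 h. Ivl differed by 9.77 ± 1.37 on the log2 scale (adjusted p = 0.00037). Without 0h-1, Ivl differed by 9.15 ± 1.65 (adjusted p = 0.00276), and its adjusted p over all settings lay between 1.42e-17 and 0.0123. Dmkn, dermokine, had 158, 168 and 153.2 CPM in the BSA 72 h libraries, against 4.56, 2.32 and 0.935 CPM at 0 h. Dmkn differed by 5.89 ± 0.48 on the log2 scale (adjusted p = 3.93e-06). Without 0h-1, Dmkn differed by 6.72 ± 0.47 (adjusted p = 6.3e-07), and its adjusted p over all settings lay between 1.41e-45 and 0.00122. Klk10, a kallikrein protease, had 140.1, 152 and 139 CPM with BSA for 72 h and 1.06, 0.968 and 1.27 CPM at 0 h (7.01 ± 0.60, adjusted p = 5.56e-06). Sbsn, suprabasin, had 35.9, 34.4 and 38.7 CPM with BSA for 72 h and 2.62, 1.84 and 2.92 CPM at 0 h (3.85 ± 0.27, adjusted p = 3.62e-07). Lor, loricrin, had 41.9, 35.4 and 25.3 CPM with BSA for 72 h and 0.253, 0.0968 and 0.165 CPM at 0 h (7.45 ± 0.77, adjusted p = 2.35e-05), and the stress keratin Krt16 rose (2.79 ± 0.31, adjusted p = 1.99e-05), with relatives that make its counts uncertain. In all of these the BSA 72 h libraries lay above every 0 h library. In the list, of 28 tested members 19 rose and 1 fell (median log2 difference 2.97, or 2.95 with members at 3 counts or fewer set to their bound). The list held 37 members, of which these 28 passed the filter. Of the 28, 5 had 3 counts or fewer over the 0 h libraries. Those members passed the filter through other groups and could hardly be called lower. Without 0h-1, squamous differentiation list members called higher and lower numbered 19 and 1 (median 3.08). Their summed level was 1489.5 to 1830.0 CPM across the BSA 72 h libraries and 70.6 to 142 CPM at 0 h. The member that fell was Tgm1, a transglutaminase named after its values were seen (-1.65 ± 0.30, adjusted p = 0.000856).

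The AP-1 motif, searched as TGANTCA on both strands, lay in 7 of 19 matched squamous promoters (36.8%) and in 5.42% of all 11818, and its stretches are shown because AP-1 is a known regulator of involucrin and loricrin. The stretches come from Ivl (minus strand, chr3:92573801-92573900), Lor (minus strand, chr3:92083141-92083240), Sbsn (plus strand, chr7:30751331-30751475) and Dmkn (plus strand, chr7:30763617-30763716), with the motif in capitals.
Ivl: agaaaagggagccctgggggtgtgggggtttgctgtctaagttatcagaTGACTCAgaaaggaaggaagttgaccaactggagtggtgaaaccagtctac
Lor: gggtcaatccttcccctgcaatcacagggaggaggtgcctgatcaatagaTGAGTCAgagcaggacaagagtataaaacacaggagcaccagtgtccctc
Sbsn: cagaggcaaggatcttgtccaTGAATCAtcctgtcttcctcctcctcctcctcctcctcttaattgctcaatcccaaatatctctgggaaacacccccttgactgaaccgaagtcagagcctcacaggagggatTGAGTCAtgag
Dmkn: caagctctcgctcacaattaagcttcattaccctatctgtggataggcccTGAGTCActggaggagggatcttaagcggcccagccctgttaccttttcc

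Cell junction genes moved in both directions. In the junction list, of 40 tested members 8 rose and 7 fell (median log2 difference -0.16), against 12.2% and 13% of all tested genes. Without 0h-1, epithelial junction list members called higher and lower numbered 8 and 7 (median -0.19). Dsg3, a desmosomal cadherin of stratified epithelium, had 10.2, 10.4 and 8.14 CPM in the BSA 72 h libraries, against 0.127, 0 and 0 CPM at 0 h (167-fold higher by the ratio of scaled counts (95% counting interval 56.8 to 812), adjusted p = 1.47e-07). The tight junction claudins Cldn8 (-2.63 ± 0.27, adjusted p = 8.69e-06) and Cldn3, with 582, 624 and 581 CPM with BSA for 72 h and 1299, 1486 and 1438 CPM at 0 h (-1.24 ± 0.14, adjusted p = 2.3e-05), fell, as did Epcam (-1.15 ± 0.19, adjusted p = 0.000378) and Cdh1 (-0.72 ± 0.18, adjusted p = 0.00973).

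Transcription factors of the epithelial-mesenchymal transition (EMT), the process the series was designed to examine, gave 4 rises and no fall: of 15 tested members 4 rose and 0 fell (median log2 difference -0.01). Without 0h-1, EMT transcription factors list members called higher and lower numbered 3 and 0 (median 0.07). Snai1 had 0.872, 2.06 and 0.7505 CPM in the BSA 72 h libraries, against 0.0845, 0.194 and 0.165 CPM at 0 h. Snai1 differed by 3.09 ± 0.73 on the log2 scale (adjusted p = 0.00605). Without 0h-1, Snai1 differed by 2.74 ± 0.85 (adjusted p = 0.0305), and its adjusted p over all settings lay between 0.000425 and 0.0334. Tcf4 (1.29 ± 0.18, adjusted p = 0.000139), Foxc1 (1.07 ± 0.24, adjusted p = 0.00426) and Sox4 (0.83 ± 0.28, adjusted p = 0.04, but 0.067 to 0.117 without 0h-1, 0h-2, BSA 72 h 2_1, BSA 72 h 2_2 or BSA 72 h 3) rose at higher levels. Snai2 had 54.9, 52.5 and 64.5 CPM with BSA for 72 h and 74.3, 47.03 and 46.9 CPM at 0 h (0.028 ± 0.20, adjusted p = 0.94). Zeb1 (-0.20 ± 0.73, adjusted p = 0.879), Zeb2 (-0.29 ± 0.44, adjusted p = 0.682) and Twist1 (0.37 ± 0.57, adjusted p = 0.698) were not called. Of mesenchymal effectors, of 32 tested members 6 rose and 7 fell (median log2 difference -0.21). Without 0h-1, mesenchymal effectors list members called higher and lower numbered 7 and 4 (median -0.16). In the mesenchymal effectors list, falls numbered 2 without BSA 72 h 2_1 and 3 without BSA 72 h 2_2. Vim, vimentin, had 116, 119.6 and 232 CPM with BSA for 72 h and 86.2, 102 and 51.9 CPM at 0 h (0.96 ± 0.38, adjusted p = 0.0875). Cdh2, N-cadherin, had 1.13, 0.884 and 1.73 CPM with BSA for 72 h and 1.73, 0.581 and 0.5502 CPM at 0 h (0.30 ± 0.47, adjusted p = 0.696). The matrix proteins Thbs1 (2.25 ± 0.32, adjusted p = 0.000183) and Tnc (2.50 ± 0.37, adjusted p = 0.000265) rose and the matricellular Ccn1 fell, with 56.04, 55.4 and 60.2 CPM with BSA for 72 h and 373, 866 and 899.6 CPM at 0 h (-3.64 ± 0.28, adjusted p = 6.27e-07).

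Among laminins, collagens and integrins, of 41 tested members 4 rose and 12 fell (median log2 difference -0.16). Without 0h-1, laminin collagen and integrin adhesion list members called higher and lower numbered 5 and 12 (median -0.16). The integrin chains Itga3 (-1.30 ± 0.16, adjusted p = 3.56e-05), Itga9 (-2.32 ± 0.32, adjusted p = 0.000114) and Itgb5 (-0.76 ± 0.11, adjusted p = 0.000152) fell. For actin and motility genes, of 47 tested members 4 rose and 10 fell (median log2 difference -0.10), and their summed level was 21826 to 25344 CPM across the BSA 72 h libraries and 49174 to 51919.7 CPM at 0 h. That sum is weighted to abundant genes such as Tmsb4x and Actb, given below, and 33 members were not called. Without 0h-1, actin and motility list members called higher and lower numbered 4 and 9 (median -0.15). Tmsb4x, thymosin beta 4, which binds actin monomers, had 2690.1, 2655 and 2540.0 CPM in the BSA 72 h libraries, against 12427, 13185 and 16143 CPM at 0 h. Tmsb4x differed by -2.40 ± 0.25 on the log2 scale (adjusted p = 7.96e-06). Without 0h-1, Tmsb4x differed by -2.48 ± 0.26 (adjusted p = 1.16e-05), and its adjusted p over all settings lay between 1.19e-23 and 0.000146. Actb, cytoplasmic actin, had 6951, 7985 and 9949 CPM with BSA for 72 h and 22698, 21110.0 and 21231 CPM at 0 h (-1.39 ± 0.32, adjusted p = 0.00491), and Cttn, cortactin (-0.94 ± 0.12, adjusted p = 6.14e-05), the membrane linker Ezr (-0.997 ± 0.19, adjusted p = 0.00161) and the small GTPase Rhob (-1.87 ± 0.31, adjusted p = 0.000504) fell. For matrix proteases and inhibitors, of 34 tested members 9 rose and 6 fell (median log2 difference 0.20). Without 0h-1, matrix proteases and inhibitors list members called higher and lower numbered 7 and 4 (median 0.55). In the matrix proteases and inhibitors list, falls numbered 3 without BSA 72 h 2_1 or BSA 72 h 2_2. The serine protease Htra1 had 225, 235 and 227 CPM with BSA for 72 h and 37.05, 20.2 and 14.6 CPM at 0 h (3.25 ± 0.35, adjusted p = 2.04e-05), the metalloprotease Adam12 rose (2.43 ± 0.30, adjusted p = 3.87e-05), and Mmp15 (-1.48 ± 0.18, adjusted p = 3.56e-05) and the plasminogen activator Plat (-2.36 ± 0.39, adjusted p = 0.000576) fell.

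MHC class II genes, which present antigen and are used by immune cells and by some epithelium, all fell. Cd74, the invariant chain, had 21.4, 22.6 and 25.2 CPM in the BSA 72 h libraries, against 996, 1279 and 1368 CPM at 0 h. Cd74 differed by -5.72 ± 0.29 on the log2 scale (adjusted p = 2.86e-08). Without 0h-1, Cd74 differed by -5.84 ± 0.29 (adjusted p = 9.16e-09), and its adjusted p over all settings lay between 1.21e-97 and 2.81e-06. H2-Aa had 3.44, 4.36 and 6.87 CPM in the BSA 72 h libraries, against 269, 314 and 366 CPM at 0 h. H2-Aa differed by -6.02 ± 0.40 on the log2 scale (adjusted p = 6.15e-07). Without 0h-1, H2-Aa differed by -6.12 ± 0.41 (adjusted p = 6.67e-07), and its adjusted p over all settings lay between 6.75e-60 and 5.19e-05. H2-Eb1 (-6.29 ± 0.45, adjusted p = 1.12e-06) and H2-DMa, a peptide exchange factor (-1.39 ± 0.16, adjusted p = 2.73e-05), fell too. In the list, of 8 tested members 0 rose and 8 fell (median log2 difference -3.10), and the groups did not overlap in any of the genes named here. Without 0h-1, MHC class II list members called higher and lower numbered 0 and 8 (median -3.30). The summed level was 113 to 131 CPM across the BSA 72 h libraries and 1811 to 2417 CPM at 0 h. Most immune markers fell beside them: of 22 tested members 2 rose and 13 fell (median log2 difference -1.61), with a summed level of 628 to 819 CPM across the BSA 72 h libraries and 641 to 800.2 CPM at 0 h. Without 0h-1, immune list members called higher and lower numbered 2 and 13 (median -1.67). Of the defining markers, Ptprc, the leukocyte antigen CD45 (-1.95 ± 0.38, adjusted p = 0.0016), and Csf1r, the macrophage growth factor receptor, with 2.77, 2.65 and 2.37 CPM with BSA for 72 h and 12.3, 16.5 and 12.1 CPM at 0 h (-2.38 ± 0.27, adjusted p = 2.2e-05), fell, and Adgre1, the macrophage antigen F4/80, was not called (-0.62 ± 0.37, adjusted p = 0.25). Cd3e had 3, 0 and 0 counts at BSA 72 h and 12, 4 and 8 at 0 h, and Cd79a had 5, 3 and 3 against 2, 0 and 19, both under the filter. Coro1a (-2.14 ± 0.36, adjusted p = 0.000503) and Ly86 (-2.74 ± 0.47, adjusted p = 0.000689), genes of leukocytes, fell, and Nkg7 of cytotoxic cells had no counts at BSA 72 h (at least 45.7-fold lower, adjusted p = 0.000731). Cd68 (1.74 ± 0.40, adjusted p = 0.00643) and Lyz2 (1.51 ± 0.40, adjusted p = 0.0143, but 0.051 to 0.0518 without 0h-2 or 0h-4), macrophage genes named after their values were seen, were the members that rose. The summed immune level overlapped between the groups, and the part of immune cells in the MHC class II result was not tested.

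In the interferon list, of 43 tested members 2 rose and 14 fell (median log2 difference -0.45). Without 0h-1, interferon response list members called higher and lower numbered 1 and 7 (median -0.12). In the interferon response list, rises numbered 0 without 0h-4 or BSA 72 h 2_2. In the interferon response list, falls numbered 7 without BSA 72 h 2_2 and 8 without BSA 72 h 2_1. The GTPase Iigp1 had 3.797, 4.95 and 4.503 CPM in the BSA 72 h libraries, against 75.2, 178 and 420.3 CPM at 0 h (-5.67 ± 0.83, adjusted p = 0.000498), the class I molecule H2-D1 2633, 2852 and 3375 CPM with BSA for 72 h and 6901, 5433 and 5617 CPM at 0 h (-1.02 ± 0.19, adjusted p = 0.0012), and Psmb9, a subunit of the immunoproteasome (-1.09 ± 0.13, adjusted p = 2.82e-05), and Gbp7 (-1.23 ± 0.26, adjusted p = 0.00288) fell. Erythroid genes were near 0 CPM at BSA 72 h: of 6 tested members 0 rose and 5 fell (median log2 difference -7.48, or -6.81 with members at 3 counts or fewer set to their bound), with a summed level of 2.42 to 3.2996 CPM across the BSA 72 h libraries and 43.6 to 134 CPM at 0 h. The erythroid list held 10 members, of which 6 were tested. Of these 6, 3 had 3 counts or fewer over the BSA 72 h libraries and could hardly be called higher. Without 0h-1, erythroid list members called higher and lower numbered 0 and 4 (median -6.98). Hba-a1, alpha globin, had 0.411, 0.412 and 0.231 CPM with BSA for 72 h and 47.1, 20.3 and 79.1 CPM at 0 h (-7.09 ± 0.74, adjusted p = 2.65e-05). Hba-a2, its near-identical copy, had 0.0513, 0 and 0.115 CPM with BSA for 72 h and 29.7, 7.16 and 7.37 CPM at 0 h (313-fold lower by the ratio of scaled counts (95% counting interval 107 to 1520.0), adjusted p = 1.22e-05). The beta globins had no counts at BSA 72 h (Hbb-bs at least 438-fold lower, adjusted p = 0.000346; Hbb-bt at least 92.8-fold lower, adjusted p = 0.0108).

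Markers of other cells of the gland were low and moved unevenly. Endothelial markers: of 22 tested members 0 rose and 3 fell (median log2 difference -0.51). Without 0h-1, endothelial list members called higher and lower numbered 0 and 3 (median -0.35). Their summed level was 171 to 399.95 CPM across the BSA 72 h libraries and 132 to 716 CPM at 0 h, and of the defining markers Pecam1 had 7.75, 7.48 and 21.5 CPM with BSA for 72 h and 20.8, 29.6 and 4.46 CPM at 0 h (-0.57 ± 0.70, adjusted p = 0.612) and Cdh5 was not called (-0.47 ± 0.90, adjusted p = 0.761). Vwf, von Willebrand factor (-2.92 ± 0.47, adjusted p = 0.000703), the phosphatase Ptprb (-3.29 ± 0.79, adjusted p = 0.00879) and the coreceptor Eng (-1.75 ± 0.45, adjusted p = 0.0124, but 0.0548 to 0.0552 without BSA 72 h 2_1 or BSA 72 h 2_2) fell. Among fibroblast and stromal markers, of 24 tested members 1 rose and 7 fell (median log2 difference -0.93), with a summed level of 666 to 994 CPM across the BSA 72 h libraries and 659.7 to 1821 CPM at 0 h. Without 0h-1, fibroblast and stromal list members called higher and lower numbered 1 and 5 (median -0.36). In the fibroblast and stromal list, falls numbered 3 without 0h-2, BSA 72 h 2_1 or BSA 72 h 2_2. Dcn, decorin, had 16.3, 14.3 and 31.2 CPM with BSA for 72 h and 326, 148 and 71.6 CPM at 0 h (-3.15 ± 0.53, adjusted p = 0.00115). Col1a1 had 3.95, 3.71 and 9.53 CPM with BSA for 72 h and 40.01, 11.3 and 2.59 CPM at 0 h (-1.66 ± 0.77, adjusted p = 0.14, but 0.0187 without 0h-4). Pdgfra had 2.001, 1.59 and 2.19 CPM with BSA for 72 h and 5.96, 5.52 and 1.82 CPM at 0 h (-1.19 ± 0.37, adjusted p = 0.0264, but 0.0518 to 0.123 without 0h-1, 0h-2, BSA 72 h 2_1, BSA 72 h 2_2 or BSA 72 h 3). The matrix genes Lum (-4.54 ± 0.84, adjusted p = 0.00158), Fbln2 (-1.54 ± 0.38, adjusted p = 0.00913) and Ogn (-4.35 ± 1.20, adjusted p = 0.0179, but 0.0589 to 0.0776 without 0h-2, BSA 72 h 2_1 or BSA 72 h 2_2) fell, and Ogn did not pass the filter on low counts without 0h-1. Of pericyte and smooth muscle markers, of 12 tested members 1 rose and 2 fell (median log2 difference -0.97), with a summed level of 156 to 228 CPM across the BSA 72 h libraries and 345 to 410.4 CPM at 0 h. Without 0h-1, pericyte and smooth muscle list members called higher and lower numbered 1 and 1 (median -0.49). Rgs5 was not called (-0.95 ± 0.59, adjusted p = 0.277, but 0.0142 without 0h-4), Mcam rose (1.02 ± 0.27, adjusted p = 0.0123, but 0.0559 to 0.081 without 0h-4 or BSA 72 h 3) and Rgs4 fell (-2.96 ± 0.85, adjusted p = 0.0209, but 0.0558 to 0.0879 without 0h-1, BSA 72 h 2_1 or BSA 72 h 2_2). Of Schwann cell markers, of 9 tested members 1 rose and 2 fell (median log2 difference -0.40), with a summed level of 258 to 279 CPM across the BSA 72 h libraries and 241 to 294 CPM at 0 h. Without 0h-1, Schwann cell list members called higher and lower numbered 0 and 2 (median -0.32). Mal, a myelin protein that epithelium also uses, rose (1.95 ± 0.55, adjusted p = 0.021, but 0.0503 to 0.0793 without 0h-1, 0h-4 or BSA 72 h 2_1).

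Adipocyte genes mostly rose where they were called. Lpl, lipoprotein lipase, had 107, 110.4 and 95.1 CPM in the BSA 72 h libraries, against 15.7, 6.48 and 4.02 CPM at 0 h. Lpl differed by 3.55 ± 0.51 on the log2 scale (adjusted p = 0.000361). Without 0h-1, Lpl differed by 4.34 ± 0.49 (adjusted p = 5.68e-05), and its adjusted p over all settings lay between 1.61e-14 and 0.00734. Adipoq, adiponectin, had 21.5, 25.04 and 17.1 CPM in the BSA 72 h libraries, against 0.718, 0 and 0 CPM at 0 h. Adipoq differed by 6.11 ± 1.26 on the log2 scale (adjusted p = 0.004). Without 0h-1, Adipoq had an adjusted p of 0.00501, and its adjusted p over all settings lay between 3.57e-07 and 0.0899. Plin1, the coat protein of lipid droplets, had 8.83, 9.25 and 11.9 CPM with BSA for 72 h and 0.0845, 0.0968 and 0.2201 CPM at 0 h (6.13 ± 1.26, adjusted p = 0.00336). Adrb3, the adrenergic receptor of adipocytes, had 3.23, 3.06 and 4.39 CPM with BSA for 72 h and 0, 0.387 and 0.05502 CPM at 0 h (4.99 ± 0.85, adjusted p = 0.000596). In the list, of 15 tested members 7 rose and 2 fell (median log2 difference 0.84), and its summed level was 651 to 666 CPM across the BSA 72 h libraries and 287 to 819.8 CPM at 0 h, with 0 h libraries on both sides of the BSA 72 h range. Without 0h-1, adipocyte list members called higher and lower numbered 7 and 1 (median 1.9). The defining markers Adipoq and Plin1 were each under 1 CPM in every 0 h library and over 8 CPM in every BSA 72 h library.

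Several chemokines rose, as did the inflammatory enzymes Ptgs2 and Nos2. Cxcl13, a B cell chemoattractant, had 271, 251.5 and 196 CPM in the BSA 72 h libraries, against 0.591, 0.0968 and 0 CPM at 0 h. Cxcl13 differed by 9.71 ± 0.90 on the log2 scale (adjusted p = 1.78e-05). Without 0h-1, Cxcl13 had an adjusted p of 5.36e-05, and its adjusted p over all settings lay between 2.23e-28 and 0.00509. Cxcl16, a membrane-bound chemokine, had 276, 292 and 304 CPM with BSA for 72 h and 34.9, 55.5 and 61.3 CPM at 0 h (2.52 ± 0.20, adjusted p = 7.78e-07). Cxcl5, which attracts neutrophils, had 24.1, 16.3 and 17.9 CPM with BSA for 72 h and 0.0845, 0.0968 and 0 CPM at 0 h (342-fold higher by the ratio of scaled counts (95% counting interval 117 to 1660.0), adjusted p = 0.0028), and Ccl25 rose (0.83 ± 0.13, adjusted p = 0.000381), whereas Cxcl17 fell (-2.68 ± 0.31, adjusted p = 2.55e-05). In the chemokine list, of 24 tested members 9 rose and 3 fell (median log2 difference 1.47). Without 0h-1, chemokines list members called higher and lower numbered 8 and 2 (median 1.02). In the inflammatory list, of 29 tested members 4 rose and 2 fell (median log2 difference 0.22), against 12.2% and 13% of all tested genes. Without 0h-1, inflammatory and NF-kB list members called higher and lower numbered 4 and 2 (median -0.08). Ptgs2, the inducible cyclooxygenase, had 32.7, 36.6 and 48.1 CPM with BSA for 72 h and 0.338, 1.26 and 0.165 CPM at 0 h (6.32 ± 0.85, adjusted p = 0.000249). Nos2, the inducible nitric oxide synthase, had 8.67, 8.54 and 8.08 CPM with BSA for 72 h and 0.253, 0.2903 and 0.165 CPM at 0 h (5.15 ± 0.61, adjusted p = 2.82e-05), and Csf1, a macrophage growth factor, rose (1.45 ± 0.20, adjusted p = 0.00012), while the cytokine Il1b had 0.0513, 0 and 0.173 CPM with BSA for 72 h and 5.196, 20.2 and 22.5 CPM at 0 h (-7.60 ± 2.17, adjusted p = 0.0239, but 0.0683 to 0.0863 without BSA 72 h 2_1, BSA 72 h 2_2 or BSA 72 h 3). For acute phase and antimicrobial genes, of 28 tested members 8 rose and 3 fell (median log2 difference 0.78). Without 0h-1, acute phase and antimicrobial list members called higher and lower numbered 4 and 4 (median 0.58). In the acute phase and antimicrobial list, rises numbered 4 without 0h-4 and 5 without BSA 72 h 3. In the acute phase and antimicrobial list, falls numbered 1 without BSA 72 h 2_1 or BSA 72 h 2_2. Slpi, a secreted protease inhibitor, had 2584, 2885 and 2426 CPM with BSA for 72 h and 34.8, 414 and 230.2 CPM at 0 h (3.54 ± 0.65, adjusted p = 0.00166), the antimicrobial Camp rose (3.71 ± 0.97, adjusted p = 0.0108, but 0.0503 without BSA 72 h 3), and the serum amyloids Saa1 (1.64 ± 1.33, adjusted p = 0.419) and Saa3 (4.20 ± 3.27, adjusted p = 0.398) were not called.

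With all libraries, the lists of the stress response, heat shock, lysosomes and involution held more rises than falls, and those of apoptosis and the circadian clock did not. Of all tested genes 12.2% rose and 13% fell. The apoptosis list lay near those shares, and the heat shock and involution lists exceeded the higher share by few genes. For the integrated stress and unfolded protein response, of 31 tested members 12 rose and 2 fell (median log2 difference 0.34), with Aldh1l2, a mitochondrial folate enzyme (3.21 ± 0.29, adjusted p = 2.82e-06), the factor Cebpb (1.85 ± 0.26, adjusted p = 0.00011) and the pseudokinase Trib3 (1.53 ± 0.27, adjusted p = 0.000917) higher. Without 0h-1, integrated stress and unfolded protein response list members called higher and lower numbered 13 and 2 (median 0.38). Nupr1, a stress-induced nuclear protein, had 4673, 4947 and 5231 CPM with BSA for 72 h and 238, 2122 and 673 CPM at 0 h (2.29 ± 0.71, adjusted p = 0.0334, but 0.0558 to 0.106 without 0h-1, 0h-4, BSA 72 h 2_1, BSA 72 h 2_2 or BSA 72 h 3). For heat shock genes, of 18 tested members 5 rose and 1 fell (median log2 difference 0.22), with the small chaperone Cryab (1.40 ± 0.24, adjusted p = 0.000582) and Hspa4l (0.89 ± 0.16, adjusted p = 0.000863), Hsph1 (0.75 ± 0.14, adjusted p = 0.00122) and Bag3 (0.43 ± 0.11, adjusted p = 0.0104), chaperones and a cofactor, higher. Without 0h-1, heat shock list members called higher and lower numbered 4 and 2 (median 0.16). For lysosome and autophagy, of 36 tested members 14 rose and 2 fell (median log2 difference 0.36), with the glycosidase Hexa (1.20 ± 0.19, adjusted p = 0.000278) and the protease Ctsl (1.10 ± 0.19, adjusted p = 0.000738) higher and Ctsz lower (-0.82 ± 0.15, adjusted p = 0.00123). Without 0h-1, lysosome and autophagy list members called higher and lower numbered 12 and 2 (median 0.39). In the lysosome and autophagy list, rises numbered 9 without BSA 72 h 3. For apoptosis, of 32 tested members 4 rose and 5 fell (median log2 difference 0.12), with Casp1 (1.84 ± 0.21, adjusted p = 2.05e-05), the death receptor Tnfrsf10b (0.89 ± 0.17, adjusted p = 0.00165) and Bid (1.15 ± 0.23, adjusted p = 0.00213) higher and Casp9 lower (-0.64 ± 0.15, adjusted p = 0.00484). Without 0h-1, apoptosis list members called higher and lower numbered 4 and 5 (median 0.13). In the apoptosis list, falls numbered 3 without 0h-4 or BSA 72 h 2_2. For genes known from the involuting gland, of 23 tested members 6 rose and 2 fell (median log2 difference 0.15), with the receptor Il4ra (1.42 ± 0.18, adjusted p = 4.24e-05) and the lectin Lgals3, at 1731, 1834 and 1752 CPM with BSA for 72 h and 309.8, 565 and 184.8 CPM at 0 h (2.33 ± 0.46, adjusted p = 0.00242), higher. Without 0h-1, involution genes list members called higher and lower numbered 6 and 2 (median 0.03). For the circadian clock, of 19 tested members 3 rose and 4 fell (median log2 difference 0.13), with the repressors Ciart (2.74 ± 0.32, adjusted p = 2.76e-05) and Cry1 (0.77 ± 0.19, adjusted p = 0.00761) higher and Bhlhe40 (-0.92 ± 0.21, adjusted p = 0.00424) and Bhlhe41 (-1.31 ± 0.32, adjusted p = 0.00842) lower. Without 0h-1, circadian clock list members called higher and lower numbered 5 and 3 (median 0.26). In the circadian clock list, falls numbered 2 without 0h-2, BSA 72 h 2_2 or BSA 72 h 3.

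The 12 largest rises and falls among protein-coding genes, taken without overlap and with 10 CPM or more on average where the gene was higher, included several genes from none of the lists. Tmem213, a transmembrane protein, had 78.7, 84.7 and 46.2 CPM in the BSA 72 h libraries, against 0, 0 and 0 CPM at 0 h (at least 1220.0-fold higher, adjusted p = 6.42e-05). Atp6v0a4, a proton pump subunit, had 97.5, 96.8 and 104 CPM in the BSA 72 h libraries, against 0.211, 0 and 0.05502 CPM at 0 h. Atp6v0a4 differed by 9.69 ± 0.50 on the log2 scale (adjusted p = 8.33e-08). Without 0h-1, Atp6v0a4 had an adjusted p of 1.19e-07, and its adjusted p over all settings lay between 6e-46 and 4.3e-05. Klk1, a kallikrein, had 39.5, 42.2 and 25.4 CPM with BSA for 72 h and 0.0422, 0 and 0 CPM at 0 h (1870.0-fold higher by the ratio of scaled counts (95% counting interval 335 to 73900.0), adjusted p = 0.000269). Pcp4, a calmodulin-binding protein, had 352, 322 and 262 CPM with BSA for 72 h and 0.676, 2.42 and 1.16 CPM at 0 h (7.92 ± 0.73, adjusted p = 1.43e-05). Mgarp, a mitochondrial protein, had 32.997, 35.6 and 32.96 CPM with BSA for 72 h and 0.0422, 0.581 and 0 CPM at 0 h (7.84 ± 1.01, adjusted p = 0.000182). Acsl6, an acyl-CoA synthetase, had 26.6, 22.98 and 21.1 CPM with BSA for 72 h and 0, 0.0968 and 0.2201 CPM at 0 h (7.81 ± 0.53, adjusted p = 2.94e-07). Among the falls outside the lists, Sbp, spermine binding protein, had 0, 0 and 0 CPM in the BSA 72 h libraries, against 107, 34.5 and 102 CPM at 0 h (at least 1630.0-fold lower, adjusted p = 0.00018). R3hdml had 0.154, 0.0589 and 0.231 CPM with BSA for 72 h and 196, 117 and 104 CPM at 0 h (-9.80 ± 0.66, adjusted p = 9.65e-07). Agtr1a, an angiotensin receptor, had 2.104, 1.77 and 0.635 CPM with BSA for 72 h and 93.03, 175 and 459 CPM at 0 h (-7.32 ± 0.80, adjusted p = 5.66e-05). Cytl1, a small cytokine-like protein, had 0, 0.0589 and 0.693 CPM with BSA for 72 h and 25.1, 111.2 and 2.37 CPM at 0 h (-7.51 ± 1.41, adjusted p = 0.00248). Inmt, a methyltransferase, had 0, 0 and 0.0577 CPM with BSA for 72 h and 21.1, 11.4 and 0.8804 CPM at 0 h (653-fold lower by the ratio of scaled counts (95% counting interval 117 to 25800.0), adjusted p = 0.000958). Dcpp3, a demilune cell and parotid protein, had 0.0513, 0.118 and 0 CPM with BSA for 72 h and 9.21, 20.999 and 12.6 CPM at 0 h (228-fold lower by the ratio of scaled counts (95% counting interval 77.7 to 1110.0), adjusted p = 1.5e-05).

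Of the called genes with the highest mean level, Ptn, the growth factor pleiotrophin, was the one that fell most after Fos, with 383, 354 and 381 CPM in the BSA 72 h libraries, against 4027, 8859 and 10651 CPM at 0 h. Ptn differed by -4.40 ± 0.32 on the log2 scale (adjusted p = 4.67e-07). Without 0h-1, Ptn differed by -4.71 ± 0.22 (adjusted p = 4.92e-09), and its adjusted p over all settings lay between 3.86e-51 and 0.000605. Ly6e, a membrane-anchored antigen, had 5356, 5661 and 5238 CPM with BSA for 72 h and 16367, 15455 and 18233 CPM at 0 h (-1.62 ± 0.16, adjusted p = 5.87e-06), and the ubiquitin gene Ubb fell (-1.22 ± 0.20, adjusted p = 0.000417).

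To place these differences in time, BSA 72 h was set against BSA 36 h in the same fit. There 85 genes were called (0.469%), 59 higher (0.325%) and 26 lower (0.143%), and 2904 had an unadjusted p under 0.05. The count was 0 without any 1 BSA 72 h library, without BSA 36 h library 2 or without BSA 36 h library 3, with 2084 to 2630 genes at an unadjusted p under 0.05, and 30 without BSA 36 h library 1, with 2716 at an unadjusted p under 0.05. The BSA 36 h libraries had 15581146 to 18732149 counts. Fos averaged 12534 CPM at 0 h, 65.8 CPM at BSA 36 h and 49.3 CPM at BSA 72 h, and was not called between 72 h and 36 h (log2 difference -0.42 ± 0.40, adjusted p = 0.646). Of the named genes, Wfdc18 (1.42 ± 0.27, adjusted p = 0.0323), Dmkn (2.24 ± 0.39, adjusted p = 0.032), Atp6v0a4 (1.69 ± 0.29, adjusted p = 0.0313), Acsl6 (2.17 ± 0.34, adjusted p = 0.0309), Nos2 (3.36 ± 0.52, adjusted p = 0.0298), Adrb3 (5.09 ± 0.84, adjusted p = 0.0313), Adipoq (7.67 ± 1.45, adjusted p = 0.0484) and Mcam (1.57 ± 0.27, adjusted p = 0.0313) were higher at 72 h than at 36 h. Csn3 (-3.60 ± 0.57, adjusted p = 0.0313) and Spp1 (-1.36 ± 0.28, adjusted p = 0.0499) were lower. This comparison shares the BSA 72 h libraries with that against 0 h.

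**Figure D5:**
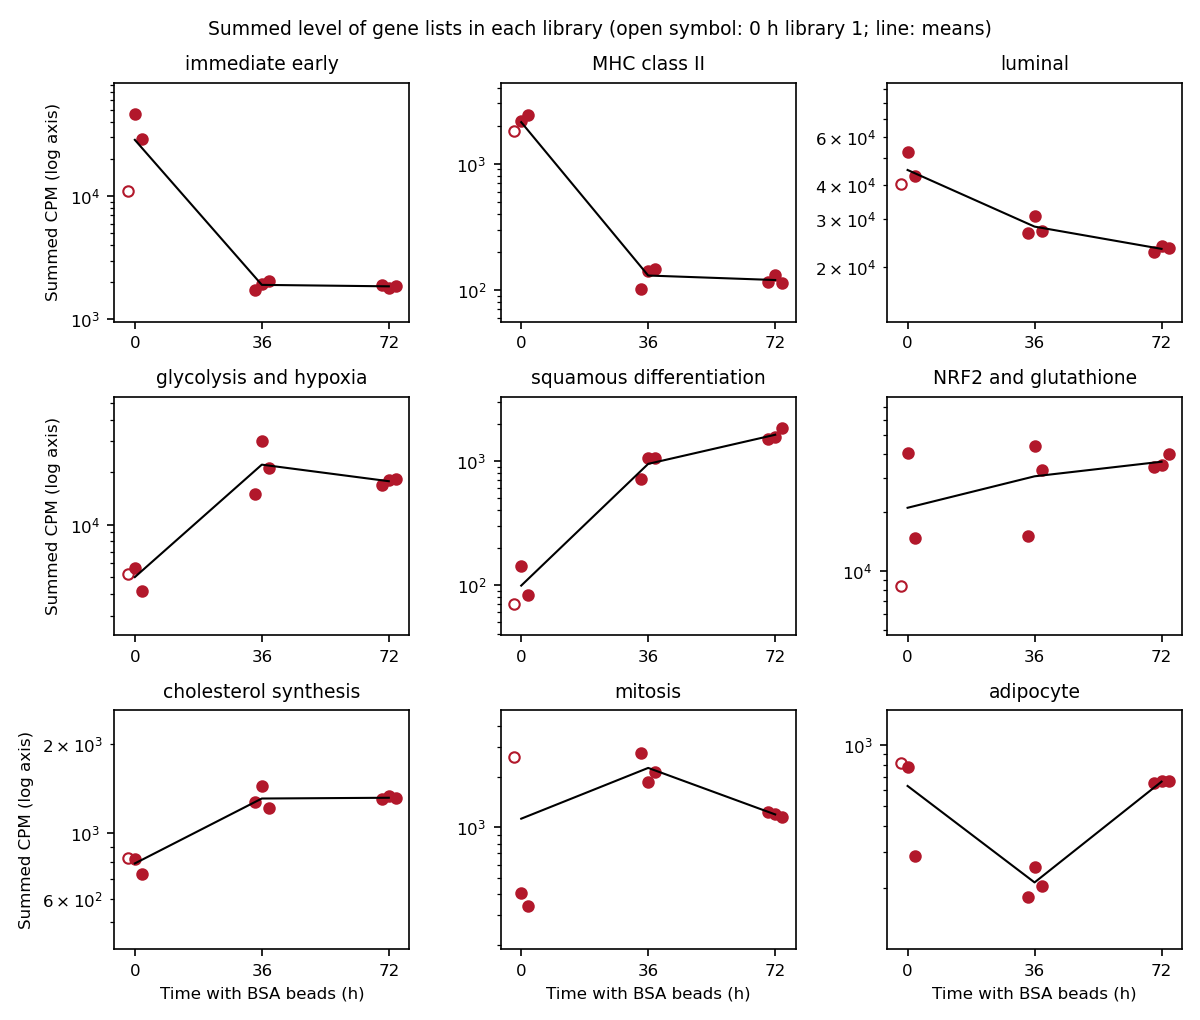
Summed CPM of 9 gene lists in each library at 0 h, BSA 36 h and BSA 72 h, on a log axis, with 0 h library 1 as an open symbol and a line through the means. Immediate early, MHC class II and luminal sums lie lower at both later times than at 0 h, glycolysis, squamous and cholesterol sums lie higher, and for mitosis 0h-1 lies within the range of BSA 36 h while the other 0 h libraries lie below all later ones.

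At the same time with FGF10, 1087 genes (5.99%) differed from BSA 72 h, 546 higher (3.01%) and 541 lower (2.98%), a comparison that does not use 0 h levels but shares the BSA 72 h libraries. This count was 148 to 559 with 1 library left out and 277 with 2_1 and 2_2 summed. In the cholesterol list 15 of 25 members were higher with FGF10 and none was lower, and in the glycolysis list 2 were higher and 8 lower of 34. Krt14 was higher with FGF10 (1.71 ± 0.19, adjusted p = 0.000593), as were Krt5 (1.24 ± 0.15, adjusted p = 0.00061), Dsg3 (2.05 ± 0.24, adjusted p = 0.00061), Tnc (2.41 ± 0.33, adjusted p = 0.0022), Etv4 (2.50 ± 0.35, adjusted p = 0.00194), Spp1 (1.83 ± 0.29, adjusted p = 0.00378) and Cdh2 (2.50 ± 0.44, adjusted p = 0.00666). The glycolysis genes Slc16a3 (-2.18 ± 0.47, adjusted p = 0.0224), Pfkp (-0.85 ± 0.15, adjusted p = 0.00653) and Ankrd37 (-1.37 ± 0.28, adjusted p = 0.0137) were lower with FGF10, as were Hmox1 (-1.97 ± 0.30, adjusted p = 0.00332), Nos2 (-3.42 ± 0.53, adjusted p = 0.00332), Adipoq (-4.47 ± 1.12, adjusted p = 0.0384), Plin1 (-4.39 ± 1.08, adjusted p = 0.0343), Lpl (-2.74 ± 0.49, adjusted p = 0.0111) and Cxcl13 (-3.40 ± 0.60, adjusted p = 0.0111). Fos (0.15 ± 0.40, adjusted p = 0.86), Ldha (-0.083 ± 0.23, adjusted p = 0.87) and Fgfr2 (-0.24 ± 0.20, adjusted p = 0.497) were not called in this comparison, and a p that misses the threshold does not show that they were alike.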

How the data were processed

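RNA was sequenced from 15 libraries in 5 groups after an Illumina stranded mRNA preparation, per the labels' protocols. The authors deposited 1 table of raw counts per gene. Per the file headers, featureCounts 2.0.1 counted paired fragments over exons by gene name, unstranded and without multi-mapping reads, so genes that overlap or have near-identical copies are uncertain. The submitters' processing notes name cutadapt 1.9.1, HISAT2 2.2.1, FastQC, HTSeq, DESeq2 and GRCm39. The titles of the FGF10 72 h libraries spell the factor FGF0, and their treatment label gives FGF10.

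Groups came from the labels. Genes were kept by edgeR's filterByExpr (at least 10 counts, total 15), which removed 36316 of 54456, and scaled by TMM. One quasi-likelihood fit of edgeR 4.0.16 in R 4.3.3 with robust dispersion covered all 5 groups (10 residual degrees of freedom), and p-values were adjusted by Benjamini-Hochberg over all 18140 tested genes. The comparison with 0 h was recomputed without 0h-1. An SE is the log2 difference over the root of F. Alternatives, among them limma 3.58.1 and DESeq2 1.42.0, are given at the end, and the code was tested on simulated data.

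The comparison, the gene lists and the rules for naming genes (the largest changes, the smallest p in each list, a panel, the most abundant called genes and the largest shifts without 0h-1) were chosen with earlier results of these data known. Genes outside the rules are marked where they are named, other than markers of cell types. Some genes are not reported here. Replicate numbers were not used to pair these groups, since only the number 2 occurs in both. Promoters came from RefSeq, GRCm38.p6, and were matched by symbol, and no GRCm39 coordinate is printed.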

Additional observations from a re-analysis of the deposited data

Results flagged for a closer look

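Genes named above were also compared between FGF10 72 h and BSA 72 h, which tests whether their change from 0 h to 72 h differed with the growth factor, and those past the threshold (edgeR, adjusted over 18140 genes) are given with the log2 difference FGF10 72 h minus BSA 72 h. The genes higher with FGF10 were Actb (1.43), Atp5b (0.721), Aurka (1.69), Cdh2 (2.50), Cdkn2b (1.24), Col17a1 (0.617), Dsg3 (2.05), Dusp6 (0.948), Etv4 (2.50), Etv5 (1.14) and Fgfbp1 (1.49). Also higher were Hspa4l (0.626), Itga3 (0.882), Krt14 (1.71), Krt16 (2.56), Krt19 (0.793), Krt5 (1.24), Msmo1 (0.746), Nkd2 (1.30), Perp (0.846), Plk2 (1.06) and R3hdml (4.26). The others higher with FGF10 were Rpa1 (0.858), Rpl32 (0.600), Rpl7 (0.531), Rps2 (0.732), Scd2 (0.883), Spp1 (1.83), Tmsb4x (0.917), Tnc (2.41), Ubb (0.867) and Wfdc2 (1.42). The genes lower with FGF10 were Acsl6 (-3.00), Adgre1 (-2.26), Adipoq (-4.47), Adrb3 (-3.30), Ankrd37 (-1.37), Atp6v1b1 (-1.61), Camp (-4.36), Cd68 (-1.70), Cd74 (-1.39), Ciart (-1.49), Csf1r (-1.51) and Cxcl13 (-3.40). Also lower were Cxcl16 (-0.956), Cxcl17 (-1.22), Foxi1 (-1.12), Gsta1 (-1.67), Gsta3 (-1.17), H2-Aa (-1.64), Hexa (-0.836), Hmox1 (-1.97), Htra1 (-1.18), Lor (-2.63), Lpl (-2.74) and Lyz2 (-1.72). The others lower with FGF10 were Mgarp (-2.58), Myh11 (-0.829), Nos2 (-3.42), Pecam1 (-3.46), Pfkp (-0.849), Plin1 (-4.39), Ptprc (-2.25), Sbsn (-0.848), Slc16a3 (-2.18), Txnip (-0.836), Vwf (-1.85) and Zeb2 (-3.95). These values come from 3 libraries a group, and no outlier test was run on groups of 3.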

How the results depend on the processing

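The 4568 genes called between BSA 72 h and 0 h were 3256 to 4208 with 1 library left out (4208 without 0h-1), and stayed within 1.5 times of the main count under every alternative run, from 3362 with 2_1 and 2_2 summed to 6114 with only the compared groups and without 0h-1. With the replicate number as a block the count was 4128, although only the number 2 occurs in both groups. The labels do not say whether that number marks a shared source. Deviations of the libraries numbered 2 from their group means correlated at -0.11 and -0.0782, which cannot decide it with 3 libraries a group. No named gene reversed under any of these alternatives, and none of the scalings moved the median of all genes by more than 0.0281 (log2). Of the named genes, 0 to 18 calls were lost and 0 to 11 gained per alternative, and of 108 counts over lists 72 to 108 stayed within 1.5 times. The 85 genes between BSA 72 h and BSA 36 h were 0 to 30 with 1 library left out, 0 with 2_1 and 2_2 summed (2138 at an unadjusted p under 0.05), 217 with no filter, 587 in DESeq2, 1182 with only the groups compared and 2683 in limma voom. The 1087 genes between FGF10 72 h and BSA 72 h were 148 to 559 with 1 library left out, 277 with 2_1 and 2_2 summed, 1977 in DESeq2, 4911 in limma voom and 5025 with only the groups compared. Without FGF10 36 h library 4, chosen after seeing the data, the counts were 5627 against 0 h, 569 against BSA 36 h and 1950 for FGF10. The cause of these moves was not tested. Low genes are limited by depth, and a count of 0 in a group is given as a bound at 3 counts.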

Other observations

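Genes of the vacuolar proton pump, looked at after Atp6v0a4 had appeared among the largest rises, are given as values. Of 21 tested subunit and accessory genes 8 rose, 1 fell and 12 did not pass (median log2 difference 0.36), against 7 and 1 without 0h-1. Atp6v1b1, a subunit found in acid-secreting epithelia, had 581, 545 and 402 CPM in the BSA 72 h libraries, against 99.2, 159 and 132 CPM at 0 h. Atp6v1b1 differed by 1.97 ± 0.29 on the log2 scale (adjusted p = 0.000187). Without 0h-1, Atp6v1b1 differed by 1.802 ± 0.32 (adjusted p = 0.000907), and its adjusted p over all settings lay between 2.94e-10 and 0.00131. Foxi1, a transcription factor of such cells in kidney and inner ear, had 154, 152 and 131 CPM in the BSA 72 h libraries, against 45.7, 72.2 and 49.1 CPM at 0 h. Foxi1 differed by 1.39 ± 0.23 on the log2 scale (adjusted p = 0.000461). Without 0h-1, Foxi1 differed by 1.26 ± 0.25 (adjusted p = 0.00227), and its adjusted p over all settings lay between 4.37e-07 and 0.00365. In both genes every BSA 72 h library lay above every 0 h library. Atp6v0e2, another subunit, was the member that fell (-1.46 ± 0.16, adjusted p = 1.76e-05).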
